A study of Mus musculus with 9 samples.

Results

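Hippocampal RNA of mice given KA and NBP (the KA+NBP group) was compared with that of mice given KA (the KA group), over all genes of the deposited table. The comparison uses 6 of the 9 libraries of the series, 3 in each group, which were taken by their labels and not by any measured value. KA is read here as kainic acid and NBP as the butylphthalide named in the title of the series, which concerns the blood-brain barrier and complement in epileptic mice. All mice were wild type and were sampled 30 days after their treatment. Every KA+NBP mouse had KA as well, so the groups differ by NBP, and no group with NBP alone was analysed here. The 3 KA libraries carry KA without NBP, and the 3 sham libraries, from control mice, are shown beside them as values and entered the same fit, where they add to the estimate of the spread. Mice were put into the groups at random and 3 were drawn at random from each, so each library is 1 mouse. The doses, the route, the timing of NBP relative to KA, the age and the sex of the mice, and the record of seizures are not given in the sources used here.

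Kainic acid is an agonist of ionotropic glutamate receptors that evokes seizures in rodents, and in the hippocampus it is known for loss of pyramidal neurons followed by activation of microglia and astrocytes. Butylphthalide is a phthalide first obtained from celery seed and used as a drug for stroke. Complement is a protein cascade of innate immunity. In the brain C1q, which starts its classical pathway, comes largely from microglia, and C3, on which the pathways converge, comes in part from reactive astrocytes.

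The libraries held 15699251 to 16374637 estimated counts over 18474 genes, and levels are given as CPM, counts relative to the library total after scaling for composition. Markers of hippocampal neurons, astrocytes, microglia, oligodendrocytes and vessels were present in all 9 libraries, while 3 markers of T cells and neutrophils (Cd3e, Ly6g, S100a8) stayed at or below 1.38 CPM. Cd8a, another T cell marker, reached 4.83 CPM in KA+NBP 2. The KA+NBP libraries did not form 1 cluster. On the first principal component of all 9 libraries, which held 72.2% of the variance, KA+NBP 1, 2 and 3 had scores of -42.4, 25.8 and -45.0, the KA libraries 52.1, 52.6 and 61.1, and the sham libraries -40.4, -29.6 and -34.1. On this component KA+NBP 2 thus lay between the other KA+NBP libraries and the KA libraries. On the second component, with 8.64% of the variance, it had the lowest score of all, -34.2. The next was sham 2 at -14.5, and the KA libraries had 1.93 to 19.5. The counts over all genes are given with and without KA+NBP 2. For the gene lists and for single genes, values without KA+NBP 2 are given for a part of them only. KA+NBP 2 also had the highest levels of choroid plexus genes, KA+NBP 1 those of globin genes, and KA+NBP 3 the lowest of myelin genes.

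Of 14752 genes tested, 3355 (22.7%) differed between the KA+NBP and the KA group at an adjusted p under 0.05, here called changed. Of these, 1480 (10%) were higher and 1875 (12.7%) lower in KA+NBP libraries. The falls were the larger changes, with a median size of 0.85 on the log2 scale against 0.44 for the rises, and 791 falls but 139 rises were at least 2-fold. The median log2 fold change over all tested genes was -0.01. Among the changed genes, the 3 KA+NBP values lay wholly above the 3 KA values for 1391 of the rises, and wholly below for 1845 of the falls. Over all tested genes such separation was seen for 16.2% upwards and 20.4% downwards, 36.6% in either direction. In 2620 of the 3355 changed genes (78.1%), KA+NBP 2 was the KA+NBP library nearest to the KA mean. Without KA+NBP 2, 6355 of 14854 genes (42.8%) changed, 2849 up (19.2%) and 3506 down (23.6%), and 1451 of the rises and 1852 of the falls found with all libraries were among them. Without KA+NBP 1 the count was 1295 and without KA+NBP 3 it was 1510. Without KA 1, KA 2 or KA 3 it was 2053, 2067 and 1741. In all 9 fits that left out 1 library, 455 rises and 684 falls passed the threshold. Pairs of sham libraries differed least, with a chi-square of their counts per degree of freedom of 3.17 to 4.6. Pairs of KA libraries had 7.03 to 14.8, KA+NBP 1 and 3 had 5.75, and the pairs with KA+NBP 2 had 36.55 and 42.63. The shared spread can thus be lower, and the adjusted p smaller, than the KA+NBP and KA libraries alone would give. Without the sham libraries in the fit 1065 genes changed, 465 up and 600 down. Of 222 genes named by rule or after their values were seen that changed with all libraries, 94 did not pass in that fit, and 82 of these 94 were also lost with some 1 library left out. The other 12 were Cartpt, Bdnf, Itgax, Tlr7, Thbs1, Ctnnb1, Igfbp2, Serpinf1, Kcnj3, Rpl18, Bst2 and Coch (adjusted p = 0.0504 to 0.0622). The losses are given beside most of the genes described. For Nefm, Sox6, Grm4, Hcn4 and Mcm3, which were among the 82, they appear in the counts of their lists.

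**Figure D1:**
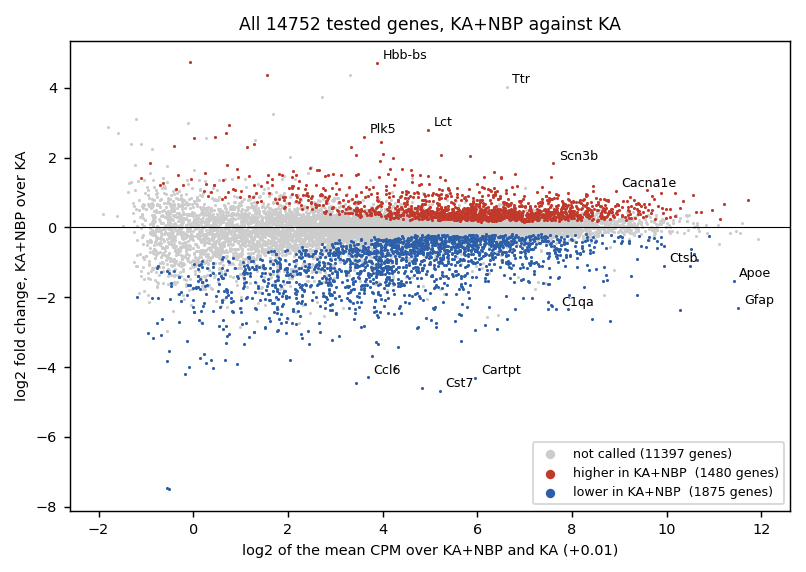
Each point is a tested gene, with its mean level on the horizontal axis (log2 CPM) and the log2 fold change of KA+NBP over KA on the vertical axis, coloured by call. The 1875 genes lower in KA+NBP libraries reach further from 0 than the 1480 higher ones. The points of Cldn22, Atp6v0d2 and Cd5l have folds that depend on the default prior count of the fit, since 1 group held 3 counts or fewer.

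The largest falls were in genes of activated microglia and macrophages and in neuropeptides. Cst7, the cystatin F of activated microglia, had 0, 8.01 and 0.188 CPM in KA+NBP libraries, against 66.3, 68.2 and 78.5 in KA and 0.0624, 0.186 and 0.251 in sham libraries. Cst7 had a log2 fold change of -4.68 (SE 0.85, adjusted p = 0.00778). Ccl6, a chemokine of myeloid cells, had 0.826, 2.08 and 0.816 CPM in KA+NBP libraries, against 27.03, 23.9 and 22.4 in KA and 1.56, 0.746 and 1.004 in sham libraries. Ccl6 had a log2 fold change of -4.29 (SE 0.34, adjusted p = 0.00116). In both genes every KA+NBP library lay below every KA library, with KA+NBP 2 the highest of its group. Atp6v0d2, a subunit of the vacuolar proton pump known from osteoclasts and macrophages, had 0 counts in the KA+NBP libraries and 69 in the KA libraries, which puts it at least 22.7-fold lower, with the floor of 3 counts set over the group. Cd5l, a secreted protein of macrophages, had 0 and 67 counts, at least 22-fold lower in the KA+NBP group. Trh, the precursor of thyrotropin-releasing hormone, had 0.254, 6.17 and 0.188 CPM in KA+NBP libraries, against 37.95, 40.7 and 84.7 in KA and 0.499, 0.746 and 0.439 in sham libraries. Trh had a log2 fold change of -4.60 (SE 0.82, adjusted p = 0.00715). Cartpt, another neuropeptide precursor, had 1.27, 15.3 and 1.19 CPM in KA+NBP libraries, against 33.8, 150.3 and 172 in KA and 1.43, 1.24 and 1.07 in sham libraries. Cartpt had a log2 fold change of -4.31 (SE 0.89, adjusted p = 0.0119). The KA values of Cartpt were themselves spread, with KA 1 well below the other two. Ccn5, a secreted matricellular protein, fell too (log2 fold change -4.46, SE 0.88, adjusted p = 0.0101), and so did Tnfsf11, the cytokine RANKL (log2 fold change -4.20, SE 0.96, adjusted p = 0.0166), whose call was lost without KA+NBP 1, KA+NBP 3 or KA 3 (adjusted p = 0.05398 to 0.0605). Leaving out KA+NBP 2 moved the log2 fold change of Trh to -7.89 and that of Cartpt to -6.58.

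The largest rises were in Cldn22, both beta-globin genes, Sp8, Lct, Pla2g2f, Plk5 and Iyd. Cldn22, a claudin, had 87 counts in the KA+NBP libraries and 3 in the KA libraries, a ratio of 29.4 with a 95% counting interval of 9.73 to 145. Lct, the lactase gene, which marks dentate granule cells in the mouse brain, had 56.8, 33.8 and 73.2 CPM in KA+NBP libraries, against 14.5, 6.26 and 2.59 in KA and 61.7, 57.4 and 79.9 in sham libraries. Lct had a log2 fold change of 2.81 (SE 0.49, adjusted p = 0.00683). Plk5, a polo-like kinase expressed in brain, had 22.5, 20.9 and 19.5 CPM in KA+NBP libraries, against 7.14, 1.59 and 1.603 in KA and 22.02, 26.2 and 26.4 in sham libraries. Plk5 had a log2 fold change of 2.59 (SE 0.46, adjusted p = 0.00697). Here KA+NBP 2 stood with the other KA+NBP libraries, and the KA libraries lay apart from both other groups. Iyd, an iodotyrosine deiodinase gene, had 2.42, 1.71 and 2.89 CPM in KA+NBP libraries, against 0.649, 0.368 and 0.123 in KA libraries (log2 fold change 2.59, SE 0.45, adjusted p = 0.00673). Pla2g2f, a secreted phospholipase, rose as well (log2 fold change 2.70, SE 0.59, adjusted p = 0.0145). The call of Pla2g2f was lost without KA 3 (adjusted p = 0.0517). Sp8, a transcription factor of interneuron precursors, was highest in KA+NBP 2, with 1.21, 6.05 and 1.63 CPM in KA+NBP libraries, against 0.649, 0.245 and 0.247 in KA libraries (log2 fold change 2.93, SE 0.76, adjusted p = 0.02602). The call of Sp8 was lost without KA 2 or KA 3 (adjusted p = 0.08102 to 0.0864). Both beta-globin genes, which share near-identical sequence, were among the largest rises, with 1 library far above the others. Hbb-bs had 78.4, 4.71 and 2.197 CPM in KA+NBP libraries, against 1.003, 0.9202 and 1.29 in KA and 1.25, 9.64 and 4.52 in sham libraries. Hbb-bs had a log2 fold change of 4.72 (SE 1.39, adjusted p = 0.0395). The call of Hbb-bs was lost without KA+NBP 1, KA 1, KA 2, KA 3, sham 1, sham 2 or sham 3 (adjusted p = 0.0523 to 0.175).

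**Figure D2:**
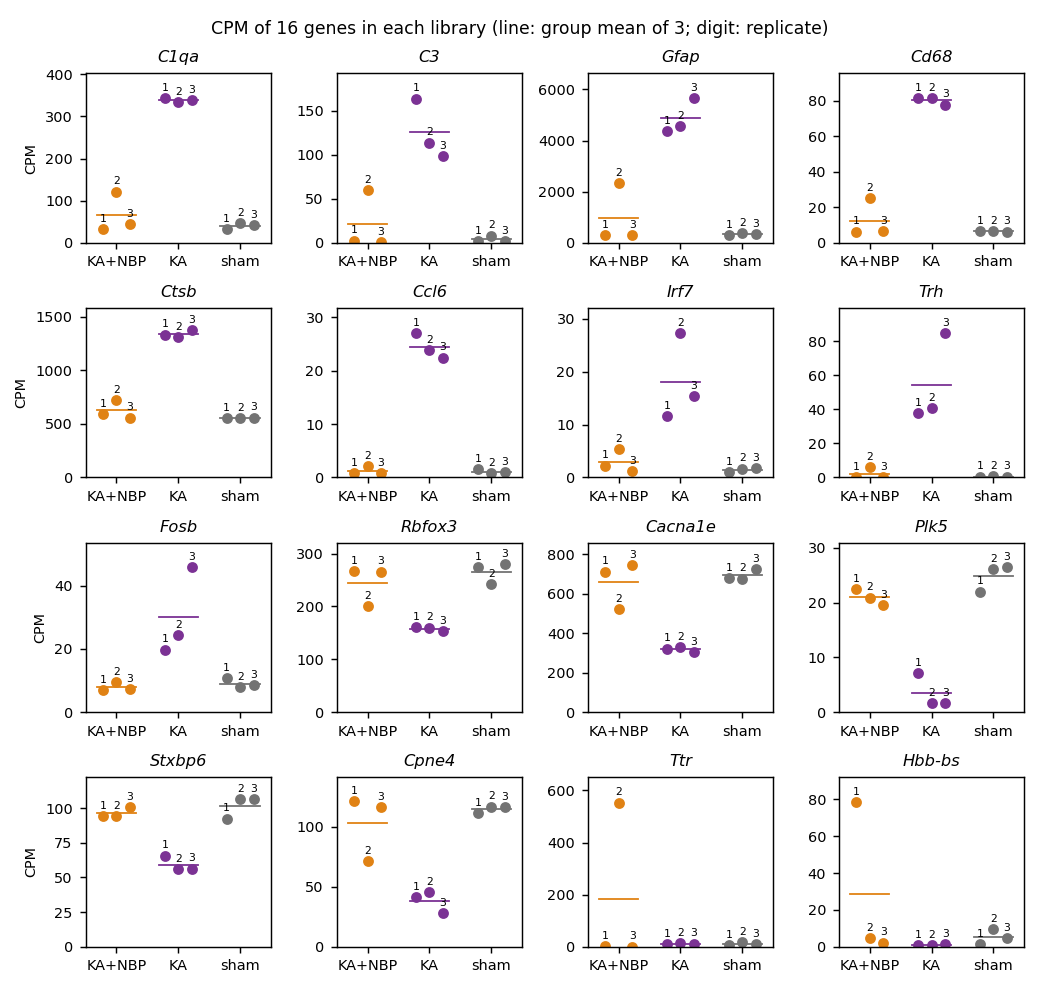
Levels of 16 genes in each library (CPM, linear axes from 0), with KA+NBP, KA and sham from left to right, each point a library and each line a group mean. In most panels KA+NBP 2 lies between the other KA+NBP libraries and the KA libraries, while for Plk5, Stxbp6 and Fosb it stands close to the other KA+NBP libraries, and for Ttr and Hbb-bs 1 KA+NBP library is far above all others.

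Microglia are the resident phagocytes of the brain, and genes of both their resting and their activated state were lower in KA+NBP libraries. In tissue RNA, fewer cells of a type and less RNA per cell cannot be told apart. Of 20 homeostatic microglial genes, 18 fell and none rose, against 12.7% of all tested genes that fell. Each list count here and below is to be read beside the shares of all tested genes, 10% higher and 12.7% lower. For counts without KA+NBP 2 these shares were 19.2% and 23.6%. The median log2 fold change of the list was -1.40, and no left-out library moved its count by more than 1.5 times. List counts in the fit without the sham libraries, where fewer genes passed, are not given here. In this list Fcrls, Olfml3, Selplg and Laptm5 passed there and Aif1 did not (adjusted p = 0.069). Fcrls, an Fc receptor-like molecule of microglia, had 18.4, 31.2 and 27.3 CPM in KA+NBP libraries, against 123, 124 and 129.5 in KA and 16.1, 17.4 and 20.5 in sham libraries. Fcrls had a log2 fold change of -2.29 (SE 0.17, adjusted p = 0.00116). All 3 KA+NBP libraries lay well below the KA libraries. Olfml3 (-1.72, SE 0.21), Selplg (-1.08, SE 0.13) and Laptm5 (-2.02, SE 0.26) fell likewise, given as log2 fold changes. The 2 members that did not pass, named after their values were seen, were Mertk, with 61.6, 66.1 and 92.3 CPM in KA+NBP libraries, against 84.1, 90.7 and 89.2 in KA libraries (adjusted p = 0.182), and P2ry12, with 29.2, 44.8 and 13.3 CPM in KA+NBP libraries, against 50.5, 50 and 43.7 in KA libraries (adjusted p = 0.141). The summed level of the list was 804, 1459 and 848 CPM in the KA+NBP libraries, 2792, 2883 and 2989 CPM in the KA libraries, and 829 to 902 CPM in the sham libraries.

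Disease-associated microglia express a set of lysosomal, lipid and surface genes around lesions. Of 25 such genes, 21 fell and none rose, with a median log2 fold change of -2.32 and no left-out library moving the count by more than 1.5 times. Cd68, a lysosomal membrane protein of phagocytes, had 6.29, 24.9 and 6.403 CPM in KA+NBP libraries, against 81.4, 81.5 and 77.8 in KA and 6.74, 6.78 and 6.34 in sham libraries. Cd68 had a log2 fold change of -2.67 (SE 0.44, adjusted p = 0.00569). Clec7a, the beta-glucan receptor dectin-1, had 0.127, 9.97 and 0 CPM in KA+NBP libraries, against 39.1, 40.2 and 30.1 in KA libraries (log2 fold change -3.42, SE 1.01, adjusted p = 0.0391). The call of Clec7a was lost with any 1 library left out other than KA+NBP 2 (adjusted p = 0.0631 to 0.0969). Itgax, the integrin CD11c, had 0.381, 6.11 and 0.126 CPM in KA+NBP libraries, against 42.2, 34.4 and 32.2 in KA libraries (log2 fold change -4.02, SE 0.83, adjusted p = 0.01197, and -7.12 on the log2 scale without KA+NBP 2). In each of these genes KA+NBP 1 and 3 were near the sham libraries, while KA+NBP 2 was several times higher and still under every KA library. Ctsb, the protease cathepsin B (-1.10, SE 0.10), Csf1, a growth factor of microglia (-0.99, SE 0.12), and Ank, a membrane exporter (-0.46, SE 0.06), fell by smaller log2 folds. Cd52, Lgals3, Lpl and Lyz2, singled out after their values were seen, did not pass (adjusted p from 0.0523 to 0.268). Lgals3, the lectin galectin-3, had 0.381, 4.53 and 0.565 CPM in KA+NBP libraries, against 10.9, 6.503 and 7.64 in KA libraries. Among 18 genes of phagocytosis and Fc receptors, 13 fell and none rose (median -1.58), and the count was 8 without KA 3. Gas6, a bridging ligand between dying cells and phagocytes, had 80.5, 82.2 and 83.7 CPM in KA+NBP libraries, against 129.6, 127 and 119.8 in KA libraries (log2 fold change -0.61, SE 0.06, adjusted p = 0.001195), with the 3 KA+NBP values almost equal. Itgb5 (-1.56, SE 0.19), Elmo1 (-0.55, SE 0.10) and Fcgr3 (-1.73, SE 0.31), which act in uptake, fell as well.

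Lysosomal genes moved with these. Of 25, 23 fell and none rose, with a median log2 fold change of -1.10, and no left-out library moved the count by more than 1.5 times. Grn, the precursor of progranulin, had 60.5, 86.6 and 59.5 CPM in KA+NBP libraries, against 199, 218 and 195 in KA and 59.1, 61.1 and 66.03 in sham libraries. Grn had a log2 fold change of -1.56 (SE 0.14, adjusted p = 0.001195). Hexa, a subunit of beta-hexosaminidase, had 43.5, 68.6 and 47.2 CPM in KA+NBP libraries, against 136, 134 and 141 in KA libraries (log2 fold change -1.37, SE 0.15, adjusted p = 0.00185). Ctsl, the protease cathepsin L, had 69.4, 122 and 78.3 CPM in KA+NBP libraries, against 271, 263 and 287 in KA libraries (log2 fold change -1.60, SE 0.18, adjusted p = 0.00198). For all 3 genes the groups were clearly separate and KA+NBP 2 was nearer to its own group than to the KA libraries. Ctsc and Npc1, named after their values were seen, did not pass (adjusted p = 0.05701 and adjusted p = 0.0763). Apoe, the lipid carrier made by astrocytes and activated microglia, had 1056, 2131 and 1043 CPM in KA+NBP libraries, against 4496, 4102 and 3602 in KA and 1170, 1203 and 1168 in sham libraries. Apoe had a log2 fold change of -1.53 (SE 0.25, adjusted p = 0.00569). It was 1 of 4 genes that fell among 20 of cholesterol synthesis and efflux, of which none rose (median -0.11), and the rises numbered 1 without KA 3. Abca1, a cholesterol exporter (-1.17, SE 0.32), was another, and its call was lost without KA+NBP 1, KA+NBP 3, KA 1, KA 2, KA 3, sham 2 or sham 3 (adjusted p = 0.0506 to 0.108).

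Among the complement genes that the title of the series points to, the chains of C1q passed the test with all libraries, while C3 and C4b did not. Of 11 classical-pathway genes tested, C1qa, C1qb, C1qc and C1ra fell and none rose, with a median log2 fold change of -1.76, and the count was 9 without KA+NBP 2. C1qa (Gene ID 12259, chromosome 4, 136623227 to 136626155 in GRCm39) had 33.4, 121 and 45.2 CPM in KA+NBP libraries, against 344, 334 and 338 in KA and 31.7, 47.1 and 41.99 in sham libraries. C1qa had a log2 fold change of -2.34 (SE 0.41, adjusted p = 0.00673). Its neighbour C1qb had 32.2, 112 and 53.4 CPM in KA+NBP libraries, against 308, 299 and 317 in KA libraries (log2 fold change -2.23, SE 0.36, adjusted p = 0.00551). C1qc, the third chain of C1q, had 35.4, 117 and 45.2 CPM in KA+NBP libraries, against 299, 318 and 326 in KA libraries (log2 fold change -2.25, SE 0.39, adjusted p = 0.00639). Without KA+NBP 2 their log2 fold changes were -3.10, -2.85 and -2.96, and they passed in each fit that left out 1 library. C1ra, a protease of the C1 complex, had 2.99, 8.31 and 2.95 CPM in KA+NBP libraries, against 14.9, 17.6 and 15.9 in KA libraries (log2 fold change -1.76, SE 0.41, adjusted p = 0.0175). The call of C1ra was lost without KA+NBP 1 or KA+NBP 3 (adjusted p = 0.0547 to 0.0629). The homeostatic microglial genes, the usual source of C1q in brain, were lower in the same libraries, and their part in these values was not tested.

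Further down the cascade the calls turned on KA+NBP 2. C3 had 2.42, 60.3 and 0.753 CPM in KA+NBP libraries, against 164, 114 and 98.5 in KA and 2.06, 8.27 and 2.197 in sham libraries. C3 had a log2 fold change of -2.56 (SE 1.08, adjusted p = 0.117), so it did not pass. KA+NBP 1 and 3 were at the level of the sham libraries, and KA+NBP 2 was far above them. Without KA+NBP 2 the log2 fold change of C3 was -6.30, adjusted p = 3.17e-05, where the adjusted p over all alternatives ran from 3.17e-05 to 0.247. C4b, whose reads can be shared with its near copy C4a, had 49.6, 394 and 67.9 CPM in KA+NBP libraries, against 646, 661 and 647 in KA and 70.3, 74.8 and 62.4 in sham libraries. C4b had a log2 fold change of -1.93 (SE 0.65, adjusted p = 0.0591). Leaving out KA+NBP 2 gave -3.47, adjusted p = 3.90e-07 for C4b, in a range of 3.90e-07 to 0.152 over the alternatives. Of 6 genes of the alternative and lectin pathways none changed, and their median log2 fold change was -0.12. Without KA+NBP 2, 1 of them, Colec12, a scavenger receptor of the collectin family, was lower (-1.73, adjusted p = 7.05e-05, with a range of 7.05e-05 to 0.317). At an unadjusted p under 0.05 the all-library edgeR fit had 5622 genes in all, and Colec12 had 5.85, 16.8 and 4.58 CPM in KA+NBP libraries, against 19.3, 18.6 and 13.9 in KA libraries (log2 fold change -0.93, SE 0.41, adjusted p = 0.126).
Of 19 complement receptors and regulators 8 fell and 1, Csmd3, rose (median -0.80). The falls numbered 3 without KA+NBP 1, KA+NBP 3 or KA 2, 4 without KA 1 or KA 3, and the rises 0 without KA+NBP 1, KA+NBP 3, KA 1, KA 2, KA 3, sham 2 or sham 3, 2 without KA+NBP 2. Itgam, the CD11b chain of complement receptor 3, had 26.9, 41.8 and 33.96 CPM in KA+NBP libraries, against 91.5, 93 and 87.7 in KA and 23.8, 31.1 and 30.8 in sham libraries. Itgam had a log2 fold change of -1.41 (SE 0.15, adjusted p = 0.00197), and passed whichever library was left out. C3ar1, the receptor of C3a, had 1.08, 7.64 and 1.82 CPM in KA+NBP libraries, against 18.6, 17.3 and 17.9 in KA libraries (log2 fold change -2.34, SE 0.54, adjusted p = 0.0174). The call of C3ar1 was lost without KA+NBP 3 (adjusted p = 0.0531), and its log2 fold change was -3.62 without KA+NBP 2. C5ar2, a receptor of C5a, had a log2 fold change of -1.17, SE 0.26, and its call was lost without KA+NBP 1, KA+NBP 3, KA 2 or KA 3 (adjusted p = 0.0522 to 0.0584). Serping1, the C1 inhibitor, had 4.64, 23.5 and 4.02 CPM in KA+NBP libraries, against 43.03, 40.5 and 38.04 in KA libraries (log2 fold change -1.91, SE 0.55, adjusted p = 0.0371). The call of Serping1 was lost with any 1 library left out other than KA+NBP 2 (adjusted p = 0.0576 to 0.109), and its log2 fold change was -3.23 without KA+NBP 2. Csmd3, a CUB and sushi domain protein of neurons chosen after its value was seen, had 37.6, 28.2 and 33.2 CPM in KA+NBP libraries, against 26.4, 25.2 and 24.7 in KA libraries (log2 fold change 0.38, SE 0.12, adjusted p = 0.0466). The call of Csmd3 was lost without KA+NBP 1, KA+NBP 3, KA 1, KA 2, KA 3, sham 2 or sham 3 (adjusted p = 0.0625 to 0.1596).

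Interferon-stimulated genes encode antiviral proteins and are switched on through STAT and IRF factors, which bind GAAA repeats known as the interferon-stimulated response element. Of 32 tested, 25 fell in KA+NBP libraries and none rose, with a median log2 fold change of -1.86. The count was 6 without KA+NBP 1, 8 without KA+NBP 3 or KA 2, 11 without KA 3, 15 without sham 2. The promoters of 3 members that fell, Bst2 and Ifit3 of them chosen after their values were seen, are shown because they hold the core of this element, GAAA followed by NN (any bases) and again GAAA. It was searched on both strands and is marked in capitals. They are the 250 bases before the transcription start from RefSeq on GRCm38.p6, read on the gene's strand, and the matches of Oas1a and Bst2 overlap each other. Oas1a lies at chr5:120907526-120907775 (minus strand), Bst2 at chr8:71537473-71537722 (minus strand) and Ifit3 at chr19:34583279-34583528 (plus strand).
Oas1a: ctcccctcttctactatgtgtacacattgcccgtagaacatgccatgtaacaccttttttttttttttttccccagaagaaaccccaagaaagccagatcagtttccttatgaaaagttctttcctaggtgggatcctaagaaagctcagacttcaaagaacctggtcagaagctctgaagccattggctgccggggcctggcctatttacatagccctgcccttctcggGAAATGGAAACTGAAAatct
Bst2: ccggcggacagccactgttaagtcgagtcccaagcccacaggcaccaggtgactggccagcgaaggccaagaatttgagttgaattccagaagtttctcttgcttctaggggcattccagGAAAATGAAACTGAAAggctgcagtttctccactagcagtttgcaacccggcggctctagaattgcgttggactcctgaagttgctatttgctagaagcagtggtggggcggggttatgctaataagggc
Ifit3: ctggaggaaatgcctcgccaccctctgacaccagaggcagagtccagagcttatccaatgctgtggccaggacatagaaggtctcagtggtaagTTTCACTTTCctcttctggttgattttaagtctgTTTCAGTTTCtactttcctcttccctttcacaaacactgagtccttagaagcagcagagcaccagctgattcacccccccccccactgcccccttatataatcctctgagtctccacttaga
In Oas1a the nearest match ends 4 bases before the start, in Bst2 114 bases and in Ifit3 112 bases. The shares were counted over a longer window than the one printed, from 250 bases before to 50 bases after the start. There the motif was in 12 of the 23 interferon-stimulated genes with a promoter in the table (52.2%), in 11 of the 20 that fell (55%), in 357 of the 11682 promoters of tested genes (3.06%), and in 943 of all 27025 promoters (3.49%). This describes the letters of these windows and not binding.

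Oas1a, a sensor of double-stranded RNA with near-identical relatives, had 0.381, 2.02 and 0.502 CPM in KA+NBP libraries, against 6.91, 13.4 and 9.49 in KA and 0.312, 0.435 and 1.004 in sham libraries. Oas1a had a log2 fold change of -3.34 (SE 0.58, adjusted p = 0.00644). Irf7, a transcription factor that amplifies the interferon response, had 2.23, 5.38 and 1.19 CPM in KA+NBP libraries, against 11.6, 27.3 and 15.4 in KA and 0.998, 1.68 and 1.695 in sham libraries. Irf7 had a log2 fold change of -2.62 (SE 0.50, adjusted p = 0.009297). In both, KA 2 was the highest library and KA+NBP 2 lay between the other KA+NBP libraries and the KA libraries. Bst2, the virus tether tetherin, had 2.23, 7.15 and 1.88 CPM in KA+NBP libraries, against 13.9, 23.01 and 14.1 in KA libraries (log2 fold change -2.17, SE 0.45, adjusted p = 0.0118). Ifit3, whose reads can be shared with Ifit3b, had 8.58, 23.2 and 3.96 CPM in KA+NBP libraries, against 33.9, 90.1 and 48.1 in KA libraries (log2 fold change -2.26, SE 0.55, adjusted p = 0.0209). The call of Ifit3 was lost without KA+NBP 1 or KA 2 (adjusted p = 0.0674 to 0.0809). Ifi27 (-0.68, SE 0.13) and Isg20 (-1.30, SE 0.26) fell as well. Oas1g, another near copy in the Oas1 cluster, had -3.81, SE 0.92, and its call was lost without KA+NBP 1, KA+NBP 3, KA 2 or KA 3 (adjusted p = 0.0577 to 0.0665). The summed level of the list was 189, 346 and 168 CPM in the KA+NBP libraries, 409.8, 778 and 513 CPM in the KA libraries, and 179 to 193 CPM in the sham libraries.

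Genes of antigen presentation summed to 262, 1019 and 237 CPM in the KA+NBP libraries, 1305, 1464 and 1297 CPM in the KA libraries and 259 to 361 CPM in the sham libraries, so that KA+NBP 2 was close to the KA libraries. Of 23 genes 7 fell and none rose (median -0.95), and the count was 1 without KA+NBP 1 or KA+NBP 3, 21 without KA+NBP 2, 2 without KA 1, KA 2, KA 3, sham 1, sham 2 or sham 3. Tapbp, the chaperone tapasin, had 22.3, 34.5 and 19.2 CPM in KA+NBP libraries, against 50.2, 59.5 and 49.8 in KA libraries (log2 fold change -1.07, SE 0.19, adjusted p = 0.00689). Ctss, the protease cathepsin S that trims the invariant chain, had 52.6, 192 and 56.2 CPM in KA+NBP libraries, against 394, 391 and 378 in KA libraries (log2 fold change -1.95, SE 0.44, adjusted p = 0.0168). The call of Ctss was lost without KA+NBP 1 or KA+NBP 3 (adjusted p = 0.0502 to 0.0537). H2-DMb1 and Psmb8, a class II chaperone and a subunit of the immunoproteasome, had log2 fold changes of -1.64, SE 0.49 and -1.56, SE 0.47, and both calls were lost with any 1 library left out other than KA+NBP 2 (adjusted p = 0.0573 to 0.125). Without KA+NBP 2 the log2 fold changes were -2.59 and -2.52. H2-Aa, a class II chain in a family of related sequences, had 0.636, 20.9 and 0.188 CPM in KA+NBP libraries, against 8.97, 6.26 and 3.82 in KA and 0.686, 1.24 and 2.32 in sham libraries. KA+NBP 2 was the highest of all 9 libraries here, and KA+NBP 1 and 3 were the lowest.

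Of 21 chemokine and cytokine genes 11 fell and none rose (median -1.40), and the count was 5 without KA+NBP 1, 17 without KA+NBP 2, 7 without KA 1 or KA 3, 6 without KA 2 for falls and 1 without KA+NBP 2 for rises. Ccl9 had 0.508, 1.04 and 1.38 CPM in KA+NBP libraries, against 9.68, 8.96 and 7.83 in KA libraries (log2 fold change -3.16, SE 0.32, adjusted p = 0.00147), with all 3 KA+NBP libraries far below the KA libraries. Tgfb1, a cytokine with many targets in glia, had 4.39, 8.99 and 4.21 CPM in KA+NBP libraries, against 21.01, 21.7 and 21.2 in KA and 4.802, 6.59 and 6.21 in sham libraries. Tgfb1 had a log2 fold change of -1.86 (SE 0.27, adjusted p = 0.00379). In the NF-kB and toll-like receptor list 14 of 25 fell and none rose (median -1.16), and the count was 4 without KA+NBP 1 or KA+NBP 3, 22 without KA+NBP 2, 6 without KA 1, sham 2 or sham 3, 5 without KA 2 or KA 3, 7 without sham 1. Rela, the p65 subunit of NF-kB, had 24.5, 26.1 and 23.3 CPM in KA+NBP libraries, against 42.4, 36.8 and 39.9 in KA libraries (log2 fold change -0.69, SE 0.08, adjusted p = 0.002096), in which the 3 KA+NBP libraries were alike. Pycard, the adaptor of the inflammasome (-1.82, SE 0.31), Tlr13 (-1.90, SE 0.33) and Tlr7 (-1.31, SE 0.27), receptors of foreign RNA in endosomes, fell too. Homeostatic microglial genes were lower in the same libraries, and their part in the cytokine, receptor and interferon values was not tested.

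Astrocytes support neurons and enlarge and change their genes after injury. Of 20 general astrocyte genes 13 fell and none rose, by a median of -0.43, and the count was 5 without KA+NBP 1 or KA 2, 6 without KA+NBP 3, 7 without KA 3. Acsbg1, a fatty acid ligase of astrocytes, had 139, 170.3 and 136 CPM in KA+NBP libraries, against 232, 254 and 256 in KA libraries (log2 fold change -0.74, SE 0.09, adjusted p = 0.00256). Aldh1l1, a folate enzyme used as a marker of all astrocytes, had 53.8, 65.5 and 66.5 CPM in KA+NBP libraries, against 93.6, 93.9 and 105 in KA libraries (log2 fold change -0.65, SE 0.10, adjusted p = 0.00401), and its groups did not overlap. Gpr37l1 (-0.74, SE 0.12) and Ntsr2 (-0.43, SE 0.08), receptors of astrocytes, fell also. Of 33 reactive astrocyte genes 20 fell and none rose, with a larger median of -1.62, and the count was 7 without KA+NBP 1 or KA+NBP 3, 11 without KA 1, 6 without KA 3 for falls and 2 without KA+NBP 2 for rises. Gfap, the intermediate filament of reactive astrocytes, had 313, 2321 and 314 CPM in KA+NBP libraries, against 4379, 4554 and 5655 in KA and 316, 391 and 329 in sham libraries. Gfap had a log2 fold change of -2.31 (SE 0.70, adjusted p = 0.0427). KA+NBP 1 and 3 were at sham levels and KA+NBP 2 lay between them and the KA libraries. The call was lost with any 1 library left out other than KA+NBP 2 (adjusted p = 0.0668 to 0.108), and the log2 fold change without KA+NBP 2 was -3.96. Aqp4, the water channel of astrocyte endfeet and a member of the general list, had 134, 398 and 86.6 CPM in KA+NBP libraries, against 523, 600.5 and 664 in KA and 124, 166 and 125 in sham libraries. Aqp4 had a log2 fold change of -1.53 (SE 0.46, adjusted p = 0.04305). The call of Aqp4 was lost with any 1 library left out other than KA+NBP 2 (adjusted p = 0.0649 to 0.139), and its log2 fold change was -2.43 without KA+NBP 2. Serpina3n, a protease inhibitor in a cluster of related genes, had 53.2, 229.8 and 78.4 CPM in KA+NBP libraries, against 669.5, 598 and 1038 in KA libraries (log2 fold change -2.67, SE 0.48, adjusted p = 0.00741). Fbln5 (-2.45, SE 0.41), Srgn (-1.54, SE 0.27) and Thbs1 (-2.06, SE 0.43), which encode secreted or matrix proteins, fell and passed whichever library was left out.

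The blood-brain barrier is formed by endothelial tight junctions, with pericytes and astrocyte endfeet around them. Of 17 junction genes Ctnnb1, F11r and Jam2 fell and none rose (median -0.31), where 12.7% of all tested genes fell, and the count was 11 without KA+NBP 2. F11r, the adhesion molecule JAM-A, which microglia and platelets also express, had 6.74, 13.02 and 8.41 CPM in KA+NBP libraries, against 22.7, 22.7 and 21.9 in KA libraries (log2 fold change -1.25, SE 0.22, adjusted p = 0.00666). Ctnnb1, beta-catenin, had 498, 537 and 460.5 CPM in KA+NBP libraries, against 625, 644 and 769 in KA libraries (log2 fold change -0.45, SE 0.09, adjusted p = 0.0131). Jam2 had a log2 fold change of -0.67, SE 0.17. The call of Jam2 was lost without KA+NBP 1, KA+NBP 3, KA 2 or KA 3 (adjusted p = 0.0662 to 0.0923). Cldn5, the main claudin of brain endothelium, had 22.5, 33.1 and 20.6 CPM in KA+NBP libraries, against 30.3, 35.9 and 33.4 in KA and 16.9, 23.6 and 24.1 in sham libraries. Cldn5 had a log2 fold change of -0.38 (SE 0.19, adjusted p = 0.172). KA+NBP 2 lay among the KA libraries and the other KA+NBP libraries below them. Ocln, the tight junction protein occludin, had 16.5, 17.1 and 14.6 CPM in KA+NBP libraries, against 14.8, 15.03 and 14.4 in KA libraries (log2 fold change 0.13, SE 0.09, adjusted p = 0.349). Tjp1, the scaffold ZO-1, had 132, 181 and 133 CPM in KA+NBP libraries, against 158, 179.9 and 167 in KA libraries (log2 fold change -0.18, SE 0.12, adjusted p = 0.314). Cdh5, the cadherin of endothelial adherens junctions, had 11.6, 16.2 and 8.79 CPM in KA+NBP libraries, against 17.8, 20.5 and 18.6 in KA libraries (log2 fold change -0.64, SE 0.20, adjusted p = 0.0517). None of these 4 passed. Without KA+NBP 2, Cldn5 (-0.62, adjusted p = 0.00713, range over the alternatives 0.00713 to 0.423), Tjp1 (-0.34, adjusted p = 0.00367, range 0.00367 to 0.639) and Cdh5 (-0.90, adjusted p = 0.00144, range 0.00144 to 0.143) were lower, and Ocln did not pass in any alternative (adjusted p from 0.236 to 0.552).

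Of 21 genes of barrier transport and caveolae, Abcg2, Cav1, Lrp1, Slc16a1 and Slc3a2 fell and none rose (median -0.35). The count was 1 without KA+NBP 1 or KA 3, 13 without KA+NBP 2, 3 without KA 1 or KA 2 for falls and 1 without KA+NBP 2 for rises. Slc3a2, the heavy chain of large amino acid transporters, had 115, 117 and 112 CPM in KA+NBP libraries, against 149, 139 and 141 in KA libraries (log2 fold change -0.32, SE 0.06, adjusted p = 0.00722). Cav1, the coat protein of caveolae, had 11.7, 22.7 and 8.35 CPM in KA+NBP libraries, against 32.6, 32.5 and 50.99 in KA libraries (log2 fold change -1.44, SE 0.34, adjusted p = 0.018). The call of Cav1 was lost without KA+NBP 1 or KA 3 (adjusted p = 0.0622 to 0.0706). Slc16a1, a lactate transporter (-0.71, SE 0.17) passed, but not without KA+NBP 1, KA 1 or KA 3 (adjusted p = 0.0548 to 0.0697), and Lrp1, an endocytic receptor (-0.28, SE 0.07) passed, but not without KA+NBP 1, KA+NBP 3, KA 2 or KA 3 (adjusted p = 0.0557 to 0.0747). Abcg2, an efflux pump chosen after its value was seen, had 14.1, 15.7 and 12.1 CPM in KA+NBP libraries, against 17.4, 19.7 and 17.3 in KA libraries (log2 fold change -0.38, SE 0.11, adjusted p = 0.0376). The call of Abcg2 was lost with any 1 library left out other than KA+NBP 2 (adjusted p = 0.0634 to 0.117). Slc2a1, the glucose transporter GLUT1, had 83.3, 106 and 121 CPM in KA+NBP libraries, against 132, 123 and 151 in KA libraries (log2 fold change -0.39, SE 0.14, adjusted p = 0.0756). Abcb1a, the drug pump P-glycoprotein, had 35.9, 44.2 and 28.9 CPM in KA+NBP libraries, against 51.4, 49.6 and 44.3 in KA libraries (log2 fold change -0.41, SE 0.14, adjusted p = 0.0616), neither of which passed. Slc2a1 passed without KA+NBP 3 (adjusted p = 0.0498, in a range of 0.0287 to 0.214), and Abcb1a without KA+NBP 2 (-0.58, adjusted p = 0.00248, in a range of 0.00232 to 0.161). Of 20 general endothelial genes 6 fell and none rose (median -0.50), and the count was 1 without KA+NBP 1, KA 1, KA 2, KA 3 or sham 2, 13 without KA+NBP 2, 2 without KA+NBP 3, 3 without sham 1. Nos3, the endothelial nitric oxide synthase, had 9.03, 10.2 and 8.66 CPM in KA+NBP libraries, against 12.99, 14.5 and 16.6 in KA libraries (log2 fold change -0.66, SE 0.14, adjusted p = 0.0127), while the calls of Pecam1, Eng and Tie1 (log2 fold changes -0.61, SE 0.16, -0.69, SE 0.19 and -0.71, SE 0.20) were each lost without KA+NBP 1, KA+NBP 3, KA 1, KA 2, KA 3 or sham 2, and that of Tie1 also without sham 1 or sham 3 (adjusted p up to 0.106). Of 17 genes of vascular adhesion and growth, Vcam1 fell (23.1, 59.3 and 23.6 CPM in KA+NBP libraries, against 64.2, 72.3 and 89.8 in KA libraries, log2 fold change -1.09, SE 0.33, adjusted p = 0.0418) and Nrp2 rose (log2 fold change 0.23, SE 0.07, adjusted p = 0.0435). Over all tested genes 10% rose and 12.7% fell, and 23.6% fell without KA+NBP 2. The falls in this list numbered 0 without KA+NBP 1, KA+NBP 3, KA 1, KA 2, KA 3, sham 1, sham 2 or sham 3, 6 without KA+NBP 2, and the rises 0 without KA+NBP 1, KA+NBP 3, KA 1, KA 2, sham 1, sham 2 or sham 3. The call of Vcam1 was lost with any 1 library left out other than KA+NBP 2 (adjusted p = 0.0648 to 0.129), and its log2 fold change was -1.69 without KA+NBP 2. The call of Nrp2 was lost without KA+NBP 1, KA+NBP 3, KA 1, KA 2, sham 1, sham 2 or sham 3 (adjusted p = 0.0612 to 0.128). Icam1, the adhesion molecule for leukocytes, had 1.84, 10.6 and 5.21 CPM in KA+NBP libraries, against 17.3, 15.3 and 18.7 in KA libraries (log2 fold change -1.53, SE 0.50, adjusted p = 0.0538), and -2.27, adjusted p = 0.00125 without KA+NBP 2 in a range of 0.000823 to 0.1401 over the alternatives.

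Of 15 pericyte and smooth muscle genes 8 fell and none rose (median -0.80), and the count was 2 without KA+NBP 1 or KA+NBP 3, 15 without KA+NBP 2, 5 without KA 1 or KA 2. Notch3, the receptor of mural cells, had 16.5, 22.5 and 11.1 CPM in KA+NBP libraries, against 32.05, 34.2 and 44.7 in KA libraries (log2 fold change -1.15, SE 0.23, adjusted p = 0.0106). Pdgfrb, the pericyte receptor of PDGF (-0.57, SE 0.12), Myh11, smooth muscle myosin (-0.81, SE 0.17), and Cspg4, the proteoglycan NG2 (-0.44, SE 0.10), fell by less. Their calls were lost without KA+NBP 1 or KA+NBP 3 (adjusted p = 0.0517 to 0.0561) for Pdgfrb, lost without KA+NBP 1 (adjusted p = 0.0525) for Myh11 and lost without KA+NBP 3 (adjusted p = 0.0543) for Cspg4. Of 16 fibroblast and meningeal genes Dcn, Igfbp2, Mgp, Serpinf1 and Slc13a3 fell and none rose (median -1.21), and the count was 2 without KA+NBP 1, KA+NBP 3, KA 1 or KA 2, 15 without KA+NBP 2, 3 without KA 3, sham 1, sham 2 or sham 3. Serpinf1, the secreted factor PEDF, had 10.6, 36.4 and 7.91 CPM in KA+NBP libraries, against 82.3, 74.1 and 96.8 in KA libraries (log2 fold change -2.20, SE 0.46, adjusted p = 0.01299). Igfbp2, a binding protein of insulin-like growth factors, had 14.2, 41.5 and 12.3 CPM in KA+NBP libraries, against 91.1, 73.1 and 109.7 in KA libraries (log2 fold change -2.01, SE 0.42, adjusted p = 0.0125). The fibroblast list summed to 345, 948 and 406 CPM in the KA+NBP libraries, 1400, 1429 and 954 CPM in the KA libraries and 421 to 624 CPM in the sham libraries. KA+NBP 2 thus reached the lowest KA library.

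The extracellular matrix gave changes in both directions. Of 20 matrix and perineuronal net genes 9 fell and Lamb1 rose (median -0.61). The falls numbered 3 without KA+NBP 1, KA+NBP 3 or KA 3, and the rises 0 without KA+NBP 1, KA+NBP 3 or KA 3, 3 without KA+NBP 2. Spp1, the secreted phosphoprotein osteopontin of activated microglia, had 1.78, 20.1 and 6.78 CPM in KA+NBP libraries, against 98.3, 73.4 and 104 in KA and 4.49, 3.92 and 7.28 in sham libraries. Spp1 had a log2 fold change of -3.26 (SE 0.60, adjusted p = 0.00783). Fn1, fibronectin, had 90.1, 102 and 109 CPM in KA+NBP libraries, against 158, 175 and 204 in KA libraries (log2 fold change -0.84, SE 0.14, adjusted p = 0.00569). Lamb1, a laminin chain, had 51.2, 34.1 and 55.7 CPM in KA+NBP libraries, against 27.03, 31.4 and 21.1 in KA libraries (log2 fold change 0.83, SE 0.19, adjusted p = 0.0166). The call of Lamb1 was lost without KA+NBP 1, KA+NBP 3 or KA 3 (adjusted p = 0.0545 to 0.0612). Of 18 metalloproteinases and inhibitors 6 fell and none rose (median -0.37), and the count was 2 without KA+NBP 1, KA+NBP 3 or KA 3, 3 without KA 1 for falls and 1 without KA+NBP 2 for rises. Timp2, a tissue inhibitor of metalloproteinases, had 326, 336 and 343 CPM in KA+NBP libraries, against 452, 565 and 496 in KA libraries (log2 fold change -0.59, SE 0.09, adjusted p = 0.00423). Timp1, an inhibitor made by reactive astrocytes, had 0.0636, 1.65 and 0.314 CPM in KA+NBP libraries, against 5.84, 3.804 and 5.55 in KA libraries (log2 fold change -2.88, SE 0.70, adjusted p = 0.0202). The call of Timp1 was lost without KA+NBP 3, KA 1 or KA 3 (adjusted p = 0.0592 to 0.0636), and its log2 fold change was -4.68 without KA+NBP 2. Timp3 (-0.96, SE 0.23) passed, but not without KA+NBP 1, KA+NBP 3, KA 1 or KA 3 (adjusted p = 0.0537 to 0.0761), and Adamts1, a protease of proteoglycans (-1.75, SE 0.39) passed, but not without KA+NBP 1 or KA+NBP 3 (adjusted p = 0.0534 to 0.05904). Mmp9, the gelatinase often studied at the barrier, had 1.59, 0.978 and 1.76 CPM in KA+NBP libraries, against 1.42, 1.35 and 0.678 in KA libraries (log2 fold change 0.32, SE 0.38, adjusted p = 0.561), with overlapping groups.

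**Figure D3:**
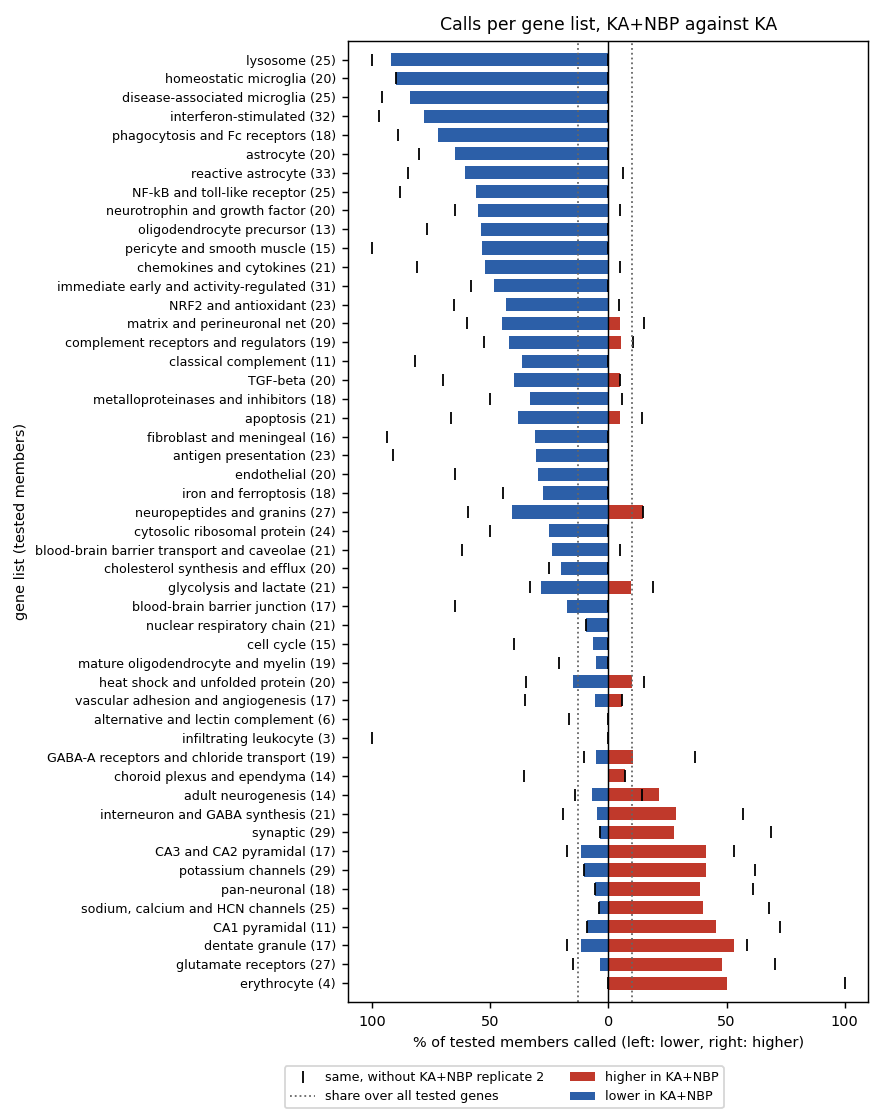
Bars give the percentage of each list's tested genes that were higher (right) or lower (left) in KA+NBP libraries, ticks give the same without KA+NBP 2, and dotted lines give the 10% and 12.7% of all tested genes. The glial, interferon and lysosomal lists lie to the left, up to 23 of 25 lysosomal genes lower, and the glutamate receptor and dentate granule lists to the right.

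Neuronal genes moved the other way and by less. Of 18 pan-neuronal genes 7 rose and Nefm fell, with a median log2 fold change of 0.29, where 10% of all tested genes rose. The rises numbered 3 without KA+NBP 1, KA+NBP 3, KA 1 or KA 3, 11 without KA+NBP 2, 4 without sham 3, and the falls 0 without KA+NBP 1, KA+NBP 3, KA 2 or KA 3. Rbfox3, the neuronal splicing factor NeuN, had 267, 201 and 266 CPM in KA+NBP libraries, against 161, 159.7 and 153 in KA and 274, 242 and 280.1 in sham libraries. Rbfox3 had a log2 fold change of 0.63 (SE 0.11, adjusted p = 0.00701). Its relative Rbfox1 had 455, 394 and 526 CPM in KA+NBP libraries, against 281, 276 and 300.1 in KA libraries (log2 fold change 0.68, SE 0.10, adjusted p = 0.00447). In both, every KA+NBP library lay above every KA library. Celf4, a neuronal RNA-binding protein, rose as well (0.43, SE 0.09), and so did Stmn2, a microtubule regulator (0.56, SE 0.13). The call of Stmn2 was lost without KA+NBP 1, KA+NBP 3, KA 1 or KA 3 (adjusted p = 0.0609 to 0.0698). Nefm, a neurofilament chain chosen after its value was seen, had 177, 198 and 179 CPM in KA+NBP libraries, against 203, 325 and 344 in KA libraries (log2 fold change -0.65, SE 0.17, adjusted p = 0.0266). The list summed to 10185, 8185 and 10259 CPM in the KA+NBP libraries, 7209, 8240 and 7857 CPM in the KA libraries and 9652 to 10213 CPM in the sham libraries. Microglial and astrocyte sums were lower in the KA+NBP libraries, CPM are shares of a library, and the part of these sums in the neuronal values was not tested.

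Dentate granule cells are the input neurons of the hippocampus. Of 17 of their genes 9 rose, and Prox1 and Trpc6 fell (median 0.52). No left-out library moved the count of rises by more than 1.5 times, while the falls numbered 1 without KA+NBP 1, KA+NBP 3 or KA 3. Stxbp6, a SNARE-binding protein, had 94.4, 94.3 and 101 CPM in KA+NBP libraries, against 65.8, 55.7 and 56.3 in KA and 92.4, 106 and 107 in sham libraries. Stxbp6 had a log2 fold change of 0.70 (SE 0.09, adjusted p = 0.00242). C1ql2, a synaptic organiser released by mossy fibres, had 84.8, 95.2 and 89.1 CPM in KA+NBP libraries, against 53.6, 32.3 and 27.4 in KA and 79.5, 83.8 and 85.7 in sham libraries. C1ql2 had a log2 fold change of 1.25 (SE 0.20, adjusted p = 0.00555). For these genes KA+NBP 2 was with the other KA+NBP libraries and not between the groups. Prox1, the transcription factor that defines granule cells, went the other way, with 135, 175 and 158 CPM in KA+NBP libraries, against 209.9, 194 and 247 in KA and 133, 146 and 156 in sham libraries. Prox1 had a log2 fold change of -0.48 (SE 0.12, adjusted p = 0.0222). The call of Prox1 was lost without KA+NBP 1, KA+NBP 3 or KA 3 (adjusted p = 0.06005 to 0.0767). The summed levels of the list overlapped, at 993 to 1230 CPM in the KA+NBP libraries and 896 to 1039 CPM in the KA libraries.

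Pyramidal neurons lie in CA1 and CA3 of the hippocampus. Of 11 CA1 genes Gpr161, Lefty1, Man1a, Ndst3 and Pou3f1 rose and Dcn fell (median 0.64). The rises numbered 1 without KA+NBP 1, 8 without KA+NBP 2, 2 without KA+NBP 3, KA 1 or KA 3, and the falls 0 without KA+NBP 1, KA+NBP 3, KA 1, KA 2, sham 1, sham 2 or sham 3. Pou3f1, a POU transcription factor, had 55.4, 26.8 and 49.8 CPM in KA+NBP libraries, against 20.9, 17.6 and 17.4 in KA and 53.2, 48.4 and 55.9 in sham libraries. Pou3f1 had a log2 fold change of 1.24 (SE 0.23, adjusted p = 0.00834). KA+NBP 2 was closer to the KA libraries than to KA+NBP 1 and 3. Gpr161, a receptor of the primary cilium, had 126, 67.7 and 139 CPM in KA+NBP libraries, against 47.4, 64.3 and 53.2 in KA libraries (log2 fold change 1.01, SE 0.24, adjusted p = 0.01798). The call of Gpr161 was lost without KA+NBP 1, KA+NBP 3, KA 1 or KA 3 (adjusted p = 0.0594 to 0.0663). Fibcd1, a marker of CA1, chosen after its values were seen, had 216, 62.9 and 254 CPM in KA+NBP libraries, against 74.1, 106 and 60.98 in KA and 204, 199.6 and 216 in sham libraries and did not pass (adjusted p = 0.0792), with KA+NBP 2 at the level of the KA libraries. Wfs1, another marker of CA1 chosen likewise, did not rise. It had 145.5, 127.1 and 120.1 CPM in KA+NBP libraries, against 122.4, 161.3 and 178.9 in KA libraries (log2 fold change -0.24, SE 0.14, adjusted p = 0.255). Ndst3 (0.78, SE 0.17) passed, but not without KA+NBP 1 or KA+NBP 3 (adjusted p = 0.0517 to 0.0588), and Man1a (0.42, SE 0.10) passed, but not without KA+NBP 1, KA 1 or KA 3 (adjusted p = 0.0557 to 0.0626). Of 17 CA3 and CA2 genes 7 rose, and Ccdc3 and Coch fell (median 0.48), and no left-out library moved these counts by more than 1.5 times. Cpne4, a copine of CA3 neurons, had 122, 71.7 and 117 CPM in KA+NBP libraries, against 41.4, 45.3 and 27.9 in KA and 112, 117 and 116 in sham libraries. Cpne4 had a log2 fold change of 1.43 (SE 0.22, adjusted p = 0.00462). Homer3, a postsynaptic scaffold, had 61.4, 42.7 and 67.7 CPM in KA+NBP libraries, against 25.6, 26.7 and 26.4 in KA libraries (log2 fold change 1.13, SE 0.15, adjusted p = 0.00296). Nectin3, a synaptic adhesion molecule, had 42.6, 40.2 and 42.3 CPM in KA+NBP libraries, against 19.7, 23.8 and 30.8 in KA libraries (log2 fold change 0.75, SE 0.14, adjusted p = 0.00741). Ccdc3 and Coch, chosen after their values were seen, had 15.2, 39.3 and 16.4 CPM in KA+NBP libraries, against 74.5, 69.6 and 94.7 in KA libraries (log2 fold change -1.75, SE 0.32, adjusted p = 0.00806) and 3.18, 9.66 and 3.33 CPM in KA+NBP libraries, against 14.3, 23.2 and 32.4 in KA libraries (log2 fold change -2.11, SE 0.44, adjusted p = 0.01299).

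Interneurons release GABA, the main inhibitory transmitter. Of 21 of their genes 6 rose and Sox6 fell (median 0.39). The rises numbered 12 without KA+NBP 2, and the falls 0 without KA+NBP 1, KA+NBP 3, KA 2, KA 3 or sham 3, 4 without KA+NBP 2, 2 without KA 1. Slc32a1, the vesicular GABA transporter, had 69.6, 86.6 and 69.99 CPM in KA+NBP libraries, against 39.4, 51.9 and 42.5 in KA and 68.5, 73.05 and 64.3 in sham libraries. Slc32a1 had a log2 fold change of 0.76 (SE 0.12, adjusted p = 0.00523). KA+NBP 2 was the highest library there. Erbb4, the neuregulin receptor of interneurons, had 74.8, 54.97 and 73.5 CPM in KA+NBP libraries, against 43.3, 40.4 and 29.5 in KA libraries (log2 fold change 0.84, SE 0.15, adjusted p = 0.00748). Lamp5, a marker of neurogliaform cells, had 29.9, 16.4 and 37.2 CPM in KA+NBP libraries, against 12.6, 11.6 and 7.83 in KA libraries (log2 fold change 1.38, SE 0.28, adjusted p = 0.0109). Dlx6, a transcription factor of the interneuron lineage, rose too (1.44, SE 0.25). Sox6, chosen after its value was seen, had 26.6, 29.6 and 22.4 CPM in KA+NBP libraries, against 33.8, 38.5 and 33.8 in KA libraries (log2 fold change -0.43, SE 0.12, adjusted p = 0.0344). Of 14 genes of adult neurogenesis Dcx, Draxin and Neurod2 rose and Prox1 fell (median 0.12), where 10% of all tested genes rose and 12.7% fell. Dcx, the microtubule protein doublecortin of new neurons, had 28.1, 31.5 and 26.9 CPM in KA+NBP libraries, against 18.2, 19.4 and 13.1 in KA and 27.1, 29.2 and 26.4 in sham libraries. Dcx had a log2 fold change of 0.77 (SE 0.14, adjusted p = 0.00726). The rises numbered 1 without KA+NBP 1, KA+NBP 3, KA 2, KA 3, sham 1, sham 2 or sham 3, and the falls 0 without KA+NBP 1, KA+NBP 3 or KA 3, 2 without KA+NBP 2. Neurod2 (0.45, SE 0.14) passed, but not without KA+NBP 1, KA+NBP 3, KA 2, KA 3, sham 1, sham 2 or sham 3 (adjusted p = 0.0542 to 0.133), and Draxin (1.01, SE 0.31) passed, but not with any 1 library left out (adjusted p = 0.0532 to 0.132).

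Glutamate receptors, on which kainic acid acts, were among the lists with many rises. Of 27 genes of receptors and auxiliary subunits 13 rose and Grm4 fell (median 0.43). No left-out library moved the rises by more than 1.5 times, and the falls numbered 0 without KA+NBP 1, KA+NBP 3 or KA 3, 4 without KA+NBP 2. Grm5, a metabotropic receptor, had 342, 288 and 343 CPM in KA+NBP libraries, against 191, 218 and 179 in KA and 349, 337 and 347 in sham libraries. Grm5 had a log2 fold change of 0.73 (SE 0.09, adjusted p = 0.00276). Grik2, a kainate receptor subunit, had 91.8, 93.4 and 91.7 CPM in KA+NBP libraries, against 65.5, 73.9 and 61.9 in KA and 88.7, 93.8 and 88.8 in sham libraries. Grik2 had a log2 fold change of 0.46 (SE 0.07, adjusted p = 0.00485). Neto2, an auxiliary subunit of kainate receptors, had 48.6, 39.1 and 46.2 CPM in KA+NBP libraries, against 31.9, 32.6 and 29.4 in KA libraries (log2 fold change 0.51, SE 0.09, adjusted p = 0.006297). In these 3 genes all KA+NBP libraries lay above all KA libraries, and KA+NBP 2 was level with its group for Grik2. Grm4, a presynaptic receptor chosen after its value was seen, had 14.6, 21.7 and 13.5 CPM in KA+NBP libraries, against 37.4, 21.4 and 42.2 in KA libraries (log2 fold change -1.02, SE 0.26, adjusted p = 0.0232).

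Of 19 genes of GABA-A receptors and chloride transport Gabrb2 and Gabrg3 rose and 1 gene fell (median 0.09), where 10% of all tested genes rose and 12.7% fell. The rises numbered 1 without KA+NBP 1, KA+NBP 3, KA 1, KA 2, KA 3, sham 1 or sham 3, 7 without KA+NBP 2, and the falls 2 without KA+NBP 2 or KA 2. Gabrg3, a receptor subunit, had 29.6, 31.6 and 30.9 CPM in KA+NBP libraries, against 18.2, 21.8 and 22.1 in KA and 31.99, 30.6 and 31.3 in sham libraries. Gabrg3 had a log2 fold change of 0.57 (SE 0.08, adjusted p = 0.00444). Every KA+NBP library lay above every KA library. Gabrb2 had a log2 fold change of 0.22, SE 0.06. The call of Gabrb2 was lost without KA+NBP 1, KA+NBP 3, KA 1, KA 2, KA 3, sham 1 or sham 3 (adjusted p = 0.0544 to 0.118).

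More genes of voltage-gated channels rose than fell. Of 25 sodium, calcium and HCN channel genes 10 rose and Hcn4 fell (median 0.39). The rises numbered 4 without KA+NBP 1, KA+NBP 3 or KA 3, 17 without KA+NBP 2, 5 without KA 1 or KA 2, 6 without sham 1 or sham 3, and the falls 0 without KA+NBP 1, KA+NBP 3, KA 1, KA 3, sham 1, sham 2 or sham 3. Scn3b, a sodium channel beta subunit, had 348, 157 and 410.3 CPM in KA+NBP libraries, against 91.8, 96.4 and 66.9 in KA and 329, 308 and 382 in sham libraries. Scn3b had a log2 fold change of 1.84 (SE 0.31, adjusted p = 0.00597). Scn4b, another beta subunit, had 26.1, 18.7 and 22.1 CPM in KA+NBP libraries, against 10.2, 8.04 and 6.104 in KA libraries (log2 fold change 1.46, SE 0.19, adjusted p = 0.00301). Scn3a, a pore subunit, had 72.3, 66.8 and 75.8 CPM in KA+NBP libraries, against 45.9, 46.4 and 42.5 in KA libraries (log2 fold change 0.67, SE 0.07, adjusted p = 0.00147). Cacna1e, the R-type calcium channel, had 712, 522 and 745 CPM in KA+NBP libraries, against 322, 328 and 304 in KA and 679, 677 and 724 in sham libraries. Cacna1e had a log2 fold change of 1.05 (SE 0.12, adjusted p = 0.00216). All 4 were separate between groups, and for Scn3b KA+NBP 2 was far below KA+NBP 1 and 3. Hcn4, a pacemaker channel chosen after its value was seen, had 3.496, 3.91 and 2.07 CPM in KA+NBP libraries, against 5.19, 4.97 and 12.02 in KA libraries (log2 fold change -1.22, SE 0.38, adjusted p = 0.0473). Of 29 potassium channel genes 12 rose, and Kcna1, Kcnip3 and Kcnj3 fell (median 0.27). The rises numbered 3 without KA+NBP 1, 5 without KA+NBP 3 or KA 1, 6 without KA 2, KA 3 or sham 1, 7 without sham 3, and the falls 1 without KA+NBP 1, KA+NBP 3, KA 1, KA 3 or sham 2. Kcnj6, the channel GIRK2, had 308, 299 and 330.3 CPM in KA+NBP libraries, against 189, 172 and 208 in KA libraries (log2 fold change 0.72, SE 0.09, adjusted p = 0.00293), and its partner Kcnj3, GIRK1, had 191, 186 and 192 CPM in KA+NBP libraries, against 239, 225 and 259 in KA libraries (log2 fold change -0.35, SE 0.07, adjusted p = 0.00895). Kcnip1, an A-current subunit (0.58, SE 0.09), rose. Kcna1 and Kcnip3, chosen after their values were seen, had -0.49, SE 0.13 (adjusted p = 0.0281) and -0.86, SE 0.27 (adjusted p = 0.0482). The call of Kcna1 was lost without KA+NBP 1, KA+NBP 3, KA 1, KA 3 or sham 2 (adjusted p = 0.0519 to 0.0974) and that of Kcnip3 lost with any 1 library left out other than KA+NBP 2 (adjusted p = 0.0693 to 0.157).
Of 29 synaptic genes 8 rose and Homer1 fell (median 0.23). The rises numbered 2 without KA+NBP 1 or KA 3, 20 without KA+NBP 2, 3 without KA+NBP 3, 4 without KA 1, and the falls 0 without KA+NBP 1 or KA+NBP 3. Pclo, the active-zone scaffold piccolo, had 466, 343 and 432 CPM in KA+NBP libraries, against 254, 286 and 275 in KA libraries (log2 fold change 0.61, SE 0.11, adjusted p = 0.007196). Nrxn3, a presynaptic adhesion molecule, had 225, 185 and 206 CPM in KA+NBP libraries, against 131, 132 and 161 in KA libraries (log2 fold change 0.54, SE 0.11, adjusted p = 0.01003). Nrgn, the calmodulin-binding protein neurogranin (0.63, SE 0.14) passed, but not without KA+NBP 1, KA+NBP 3 or KA 3 (adjusted p = 0.0534 to 0.0597). Homer1, which has an activity-induced short form not told apart by gene counts, had 149, 147 and 144 CPM in KA+NBP libraries, against 183, 247 and 350.3 in KA and 146, 152 and 154 in sham libraries. Homer1 had a log2 fold change of -0.83 (SE 0.19, adjusted p = 0.0165). The call of Homer1 was lost without KA+NBP 1 or KA+NBP 3 (adjusted p = 0.0533 to 0.0557).

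Seizures raise the expression of many neuropeptides and activity-regulated genes in hippocampal neurons. Of 27 neuropeptides, granins and their enzymes 11 fell, and Nptx1, Nts, Pcsk2 and Scg5 rose (median -1.07). The falls numbered 7 without KA+NBP 1 or KA 3, and the rises 1 without KA+NBP 1, 2 without KA 1, KA 3 or sham 1. The promoters of Pcsk1 and Scg2, both of which fell and the second of which was chosen after its values were seen, are shown because they hold TGACGTCA, the cAMP response element bound by CREB, which was searched on both strands and is marked in capitals. They are again the 250 bases before the start from RefSeq on GRCm38.p6, at chr13:75089607-75089856 (plus strand) for Pcsk1 and chr1:79440027-79440276 (minus strand) for Scg2.
Pcsk1: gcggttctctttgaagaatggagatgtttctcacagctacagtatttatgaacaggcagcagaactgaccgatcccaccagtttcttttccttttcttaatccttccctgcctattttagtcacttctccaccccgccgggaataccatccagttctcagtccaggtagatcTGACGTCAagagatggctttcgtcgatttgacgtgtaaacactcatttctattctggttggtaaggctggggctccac
Scg2: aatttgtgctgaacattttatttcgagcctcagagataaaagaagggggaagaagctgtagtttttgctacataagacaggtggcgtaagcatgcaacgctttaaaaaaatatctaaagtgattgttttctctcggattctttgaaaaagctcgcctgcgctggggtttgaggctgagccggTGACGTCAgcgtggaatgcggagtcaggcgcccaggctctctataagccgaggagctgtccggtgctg
The match ends 70 bases before the start in Pcsk1 and 60 bases in Scg2. The shares were again counted from 250 bases before to 50 bases after the start. The motif was in 5 of 22 neuropeptide and granin genes with a promoter in the table (22.7%), in 3 of the 9 that fell (33.3%), in 358 of the 11682 promoters of tested genes (3.06%), and in 507 of all 27025 promoters (1.88%). Of 25 activity-regulated genes with a promoter it was in 2 (8%), and in 0 of the 14 that fell.

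Pcsk1, the prohormone convertase PC1/3, had 26.8, 33.3 and 21.7 CPM in KA+NBP libraries, against 54.8, 63.6 and 88.7 in KA and 28.2, 29.5 and 22.2 in sham libraries. Pcsk1 had a log2 fold change of -1.34 (SE 0.21, adjusted p = 0.00477). Vgf, a granin-like secreted precursor, had 224, 302 and 178 CPM in KA+NBP libraries, against 447, 567 and 811 in KA and 196, 187 and 179 in sham libraries. Vgf had a log2 fold change of -1.37 (SE 0.23, adjusted p = 0.00608). Scg2, secretogranin II, had 189, 471 and 161 CPM in KA+NBP libraries, against 935, 897 and 1302 in KA libraries (log2 fold change -1.93, SE 0.36, adjusted p = 0.00848). Adcyap1, the precursor of PACAP, had 4.004, 7.398 and 5.52 CPM in KA+NBP libraries, against 12.8, 14.8 and 13.5 in KA libraries (log2 fold change -1.28, SE 0.20, adjusted p = 0.00485). In all 4 the KA+NBP libraries lay below the KA libraries, and in Vgf and Pcsk1 KA 3 was the highest. Npy, neuropeptide Y, had 26.2, 80.9 and 25.2 CPM in KA+NBP libraries, against 73.8, 102 and 151 in KA and 23.01, 24.4 and 23.98 in sham libraries and did not pass (log2 fold change -1.30, SE 0.43, adjusted p = 0.0568). KA+NBP 2 overlapped the KA libraries there, and without it the log2 fold change was -2.08, adjusted p = 0.000155, in a range of 0.000149 to 0.178 over the alternatives. Nptx1, a pentraxin that clusters glutamate receptors, had 854, 635 and 929 CPM in KA+NBP libraries, against 474, 429.9 and 484 in KA libraries (log2 fold change 0.80, SE 0.14, adjusted p = 0.00611). Nts, Pcsk2 and Scg5, chosen after their values were seen, had log2 fold changes of 1.53, SE 0.47 (adjusted p = 0.0442), 0.41, SE 0.09 (adjusted p = 0.0144) and 0.38, SE 0.10 (adjusted p = 0.0277). The calls were lost without KA+NBP 1, KA 1, KA 2, KA 3, sham 1, sham 2 or sham 3 (adjusted p = 0.0564 to 0.123) for Nts, lost without KA+NBP 1 (adjusted p = 0.0536) for Pcsk2 and lost without KA+NBP 1, KA+NBP 3, KA 1, KA 3 or sham 1 (adjusted p = 0.0501 to 0.101) for Scg5.

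Of 31 immediate early and activity-regulated genes 15 fell and none rose (median -0.73). The falls numbered 7 without KA+NBP 1, 8 without KA+NBP 3, 9 without KA 3, and the rises 1 without KA 3. Fosb, an AP-1 factor that accumulates with repeated activity, had 6.99, 9.54 and 7.28 CPM in KA+NBP libraries, against 19.8, 24.3 and 45.9 in KA and 10.7, 7.89 and 8.47 in sham libraries. Fosb had a log2 fold change of -1.92 (SE 0.30, adjusted p = 0.00505). Fosl2, a related factor, had 59.6, 113 and 75.5 CPM in KA+NBP libraries, against 209.9, 231 and 308 in KA and 79.02, 65.7 and 69.2 in sham libraries. Fosl2 had a log2 fold change of -1.59 (SE 0.23, adjusted p = 0.00362). In Fosb KA+NBP 2 was near its own group, and KA 3 was the highest library for both. Dusp4, a phosphatase of MAP kinases, had 20.6, 32.9 and 20.03 CPM in KA+NBP libraries, against 54.3, 68.5 and 105 in KA libraries (log2 fold change -1.63, SE 0.26, adjusted p = 0.005197). Gadd45b, a stress and plasticity gene, had 9.85, 10.9 and 10.2 CPM in KA+NBP libraries, against 27.03, 14.8 and 27.2 in KA libraries (log2 fold change -1.16, SE 0.21, adjusted p = 0.00808). Among the fast early genes singled out after their values were seen, Fos, Nr4a1, Nr4a2, Nr4a3, Atf3 and Maff fell and Arc, Egr1, Npas4 and Junb did not pass. Fos, an AP-1 factor, had 9.66, 15.7 and 8.79 CPM in KA+NBP libraries, against 23.3, 28.3 and 49.6 in KA libraries (log2 fold change -1.56, SE 0.36, adjusted p = 0.0179). The call of Fos was lost without KA+NBP 1, KA+NBP 3 or KA 3 (adjusted p = 0.0575 to 0.0698). Nr4a1 (-0.97, SE 0.21), Nr4a2 (-0.90, SE 0.18) and Nr4a3 (-0.71, SE 0.14), orphan nuclear receptors induced by activity, fell by smaller log2 folds, and the call of Nr4a1 was lost without KA+NBP 1 (adjusted p = 0.0517). Atf3 (-2.17, SE 0.55) and Maff (-1.68, SE 0.44), stress-induced transcription factors, had few reads, and the call of Atf3 was lost without KA+NBP 1, KA+NBP 3, KA 1 or KA 3 (adjusted p = 0.0588 to 0.0821) and that of Maff lost without KA+NBP 1 or KA 3 (adjusted p = 0.06603 to 0.0931). Arc had 112, 99.2 and 121 CPM in KA+NBP libraries, against 99.8, 94.5 and 157 in KA libraries (log2 fold change -0.08, SE 0.19, adjusted p = 0.786) and Npas4 had 30.7, 25.8 and 25.9 CPM in KA+NBP libraries, against 35.8, 29.4 and 44.02 in KA libraries (log2 fold change -0.41, SE 0.14, adjusted p = 0.0662).

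Bdnf, the growth factor induced by neuronal activity, had 37.6, 127 and 36.2 CPM in KA+NBP libraries, against 257, 230.4 and 398 in KA and 37.3, 37.4 and 36.7 in sham libraries. Bdnf had a log2 fold change of -2.14 (SE 0.45, adjusted p = 0.0129). It was 1 of 11 neurotrophin and growth factor genes that fell, out of 20, of which none rose (median -1.06). No left-out library moved the falls by more than 1.5 times, and the rises numbered 1 without KA+NBP 2 or KA 3. Hbegf, a ligand of the EGF receptor, had 8.39, 12.8 and 9.04 CPM in KA+NBP libraries, against 28.1, 22.6 and 40.2 in KA libraries (log2 fold change -1.59, SE 0.22, adjusted p = 0.00348). Igf1, insulin-like growth factor 1, had 6.102, 7.58 and 6.34 CPM in KA+NBP libraries, against 17.2, 12.6 and 14 in KA libraries (log2 fold change -1.13, SE 0.16, adjusted p = 0.00372). Igfbp5, a binding protein of it, had 180.3, 322 and 166 CPM in KA+NBP libraries, against 627, 653 and 611 in KA libraries (log2 fold change -1.50, SE 0.22, adjusted p = 0.00399). For each of these genes the KA+NBP libraries were below every KA library. Of 20 TGF-beta pathway genes 8 fell and Smad4 rose (median -0.92), and the falls numbered 5 without KA+NBP 1 or KA 2, 14 without KA+NBP 2. Tgfbr2, the type II receptor, had 16.5, 46.1 and 20.1 CPM in KA+NBP libraries, against 87.3, 85.4 and 87.4 in KA and 14.8, 21.1 and 22.7 in sham libraries. Tgfbr2 had a log2 fold change of -1.65 (SE 0.33, adjusted p = 0.0109). Tgfbr1, the type I receptor, had a log2 fold change of -0.91, SE 0.18. Smad4, the shared signal carrier, chosen after its value was seen, had 98.5, 98.7 and 100.4 CPM in KA+NBP libraries, against 82.6, 82.3 and 83.7 in KA libraries (log2 fold change 0.26, SE 0.05, adjusted p = 0.0124).

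Antioxidant and stress genes changed in part. Of 23 NRF2 and antioxidant genes 10 fell and none rose (median -0.32). No left-out library moved the falls by more than 1.5 times, and the rises numbered 1 without KA+NBP 2. Hmox1, the heme oxygenase induced by oxidative stress, had 4.51, 7.76 and 4.27 CPM in KA+NBP libraries, against 13.7, 13.1 and 18.4 in KA and 4.802, 5.41 and 4.58 in sham libraries. Hmox1 had a log2 fold change of -1.45 (SE 0.24, adjusted p = 0.00561). The metallothioneins Mt1, Mt2 and Mt3, which bind zinc and share similar sequences, had log2 fold changes of -1.14, SE 0.21, -1.54, SE 0.25 and -0.53, SE 0.07. Of 18 iron and ferroptosis genes 5 fell and none rose (median -0.32), and the falls numbered 1 without KA+NBP 1, 8 without KA+NBP 2, 2 without KA+NBP 3, KA 1 or KA 2, 3 without KA 3, sham 1 or sham 2. Ftl1, the ferritin light chain, had 169, 246 and 164 CPM in KA+NBP libraries, against 378, 356 and 329 in KA libraries (log2 fold change -0.88, SE 0.14, adjusted p = 0.00555), and Lpcat3 (-0.58, SE 0.14) and Acsl4 (-0.39, SE 0.10), enzymes of membrane lipids, fell too, the call of Lpcat3 being lost without KA+NBP 1, KA+NBP 3, KA 1 or KA 2 (adjusted p = 0.0508 to 0.0758) and that of Acsl4 lost without KA+NBP 1, KA+NBP 3, KA 2, KA 3 or sham 2 (adjusted p = 0.0505 to 0.0822). Gpx4, the peroxidase that limits lipid oxidation, chosen after its value was seen, had 144, 149 and 139 CPM in KA+NBP libraries, against 174, 165 and 160.1 in KA libraries (log2 fold change -0.21, SE 0.06, adjusted p = 0.0323). The call of Gpx4 was lost without KA+NBP 1, KA+NBP 3, KA 1, KA 2, sham 1, sham 2 or sham 3 (adjusted p = 0.0604 to 0.116). Trf, the iron carrier transferrin of oligodendrocytes, also belongs to this list.

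Of 20 heat shock and unfolded protein genes 3 fell and 2 rose (median -0.20), close to the 12.7% and 10% of all tested genes. The falls numbered 1 without KA+NBP 1 or KA+NBP 3, 7 without KA+NBP 2, and the rises 0 without KA+NBP 1, KA+NBP 3, KA 1 or KA 2. Hspb1, a small heat shock protein of astrocytes and vessels, had 2.29, 5.87 and 5.08 CPM in KA+NBP libraries, against 16.1, 11.3 and 48.2 in KA libraries (log2 fold change -2.51, SE 0.54, adjusted p = 0.0138). The call of Hspb1 was lost without KA+NBP 1 (adjusted p = 0.0539), and KA 3 was the highest library. Hspb8 (-0.92, SE 0.22) passed, but not without KA+NBP 3, KA 2 or KA 3 (adjusted p = 0.0515 to 0.0611), Sdf2l1 (-0.91, SE 0.21) passed, but not without KA+NBP 1 or KA+NBP 3 (adjusted p = 0.0501 to 0.0697) and Atf6, a sensor of unfolded protein (0.33, SE 0.08) passed, but not without KA+NBP 1, KA+NBP 3, KA 1 or KA 2 (adjusted p = 0.07295 to 0.0845). Hspa1b, an inducible chaperone chosen after its value was seen, had 18.1, 18.9 and 22.2 CPM in KA+NBP libraries, against 9.15, 11.5 and 15.9 in KA libraries (log2 fold change 0.69, SE 0.18, adjusted p = 0.0265). The call of Hspa1b was lost without KA+NBP 1, KA+NBP 3, KA 1 or KA 2 (adjusted p = 0.0574 to 0.0883). Of 21 apoptosis genes 8 fell and Casp9 rose (median -0.46). The falls numbered 3 without KA+NBP 1 or KA 2, 14 without KA+NBP 2, 2 without KA+NBP 3 or KA 3, 4 without KA 1, and the rises 0 without KA+NBP 1, KA+NBP 3, KA 1, KA 2 or KA 3, 3 without KA+NBP 2. Mcl1, an inhibitor of apoptosis, had 64.8, 90.4 and 66.7 CPM in KA+NBP libraries, against 123, 108 and 149 in KA libraries (log2 fold change -0.77, SE 0.14, adjusted p = 0.00844). Tnfrsf1a, the TNF receptor, had 7.44, 21.03 and 9.92 CPM in KA+NBP libraries, against 39.2, 32.7 and 50.5 in KA libraries (log2 fold change -1.67, SE 0.33, adjusted p = 0.0105). Fas, a death receptor (-1.24, SE 0.28), and Casp8, its caspase (-1.24, SE 0.31), fell as well. The call of Fas was lost without KA+NBP 1, KA+NBP 3 or KA 3 (adjusted p = 0.0537 to 0.0555) and that of Casp8 lost without KA+NBP 1, KA+NBP 3, KA 1, KA 2 or KA 3 (adjusted p = 0.05396 to 0.0857). Casp9, the caspase of the mitochondrial route, chosen after its value was seen, had 33.3, 24.5 and 33.6 CPM in KA+NBP libraries, against 22.7, 22.8 and 20.7 in KA libraries (log2 fold change 0.46, SE 0.12, adjusted p = 0.0247). The call of Casp9 was lost without KA+NBP 1, KA+NBP 3, KA 1, KA 2 or KA 3 (adjusted p = 0.0555 to 0.0929).

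Of 21 glycolysis and lactate genes 6 fell and 2 rose (median -0.14), where 12.7% of all tested genes fell and 10% rose. The falls numbered 2 without KA+NBP 1 or KA 3, and the rises 0 without KA+NBP 1, 4 without KA+NBP 2, 1 without KA+NBP 3, KA 1, KA 2, KA 3, sham 1 or sham 3. Without KA+NBP 2, 19.2% of all tested genes rose, so the rises of this list were close to the shares over all genes. Slc16a3, the lactate exporter MCT4, had 1.84, 2.14 and 1.76 CPM in KA+NBP libraries, against 5.55, 6.13 and 4.93 in KA and 1.87, 1.62 and 1.57 in sham libraries. Slc16a3 had a log2 fold change of -1.53 (SE 0.19, adjusted p = 0.00238), with the KA+NBP libraries alike. Pfkfb3, an activator of glycolysis, had 49.9, 72.6 and 52.1 CPM in KA+NBP libraries, against 100.1, 89.2 and 114 in KA libraries (log2 fold change -0.80, SE 0.15, adjusted p = 0.00862). Pfkl, a phosphofructokinase, had 294, 216 and 280.5 CPM in KA+NBP libraries, against 162, 167 and 201 in KA libraries (log2 fold change 0.58, SE 0.12, adjusted p = 0.0139). The call of Pfkl was lost without KA+NBP 1 (adjusted p = 0.0552). Hk2, an inducible hexokinase (-0.99, SE 0.22) passed, but not without KA+NBP 1, KA+NBP 3 or KA 3 (adjusted p = 0.0524 to 0.0541). Eno2, the enolase of neurons, chosen after its value was seen, had 916, 745 and 872 CPM in KA+NBP libraries, against 662, 679.9 and 693 in KA libraries (log2 fold change 0.32, SE 0.08, adjusted p = 0.0274). The call of Eno2 was lost without KA+NBP 1, KA+NBP 3, KA 1, KA 2, KA 3, sham 1 or sham 3 (adjusted p = 0.0516 to 0.102). Of 21 nuclear genes of the respiratory chain Sdhb and Ndufa1 fell, fewer than the 12.7% of all tested genes would give, and none rose (median -0.10), and the falls numbered 1 without KA+NBP 1, KA 2 or KA 3, 0 without KA+NBP 3 or KA 1. Sdhb (-0.27, SE 0.06) passed, but not without KA+NBP 3, KA 1 or KA 3 (adjusted p = 0.0522 to 0.0732), and Ndufa1 (-0.30, SE 0.08) passed, but not without KA+NBP 1, KA+NBP 3, KA 1 or KA 2 (adjusted p = 0.0666 to 0.0905). Of 24 cytosolic ribosomal protein genes 6 fell and none rose (median -0.15), and the falls numbered 3 without KA+NBP 1, KA+NBP 3, KA 1, KA 3 or sham 2, 12 without KA+NBP 2. The largest call among those named was Rplp0, with 161, 177 and 162 CPM in KA+NBP libraries, against 221, 211 and 225 in KA libraries (log2 fold change -0.39, SE 0.06, adjusted p = 0.00488), and Rpl18 (-0.28, SE 0.06) fell also. Of 15 cell cycle genes Mcm3, a replication helicase subunit, fell (2.86, 6.603 and 2.32 CPM in KA+NBP libraries, against 8.204, 7.61 and 11.1 in KA libraries, log2 fold change -1.19, SE 0.36, adjusted p = 0.0414), and none rose (median -0.53). The falls numbered 0 without KA+NBP 1, KA+NBP 3, KA 1, KA 2, KA 3, sham 1, sham 2 or sham 3, 6 without KA+NBP 2. Over all tested genes 12.7% fell, and 23.6% without KA+NBP 2.

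Mature oligodendrocytes, the myelin-forming cells, showed little change, and their precursors more. Of 19 oligodendrocyte and myelin genes Trf fell and none rose (median -0.25), and the falls numbered 0 without KA+NBP 1, KA 1, KA 2, KA 3 or sham 1, 4 without KA+NBP 2. Among all tested genes 12.7% fell, and 23.6% without KA+NBP 2, so these counts were under or close to those shares. Trf had 255, 381 and 135 CPM in KA+NBP libraries, against 564, 527 and 581 in KA and 232, 299.8 and 203 in sham libraries. Trf had a log2 fold change of -1.12 (SE 0.31, adjusted p = 0.0318). The call of Trf was lost without KA+NBP 1, KA 1, KA 2, KA 3 or sham 1 (adjusted p = 0.0538 to 0.0964). The list summed to 6010, 8030 and 3925 CPM in the KA+NBP libraries, 7614, 7653 and 6244 CPM in the KA libraries and 4625 to 6978 CPM in the sham libraries, so that KA+NBP 3 was the lowest of all and KA+NBP 2 the highest. Of 13 precursor genes 7 fell and none rose (median -0.48), and the falls numbered 3 without KA+NBP 3. Matn4, a matrix protein of the precursors, had 8.26, 10.2 and 8.098 CPM in KA+NBP libraries, against 20.01, 19.4 and 19.6 in KA and 9.42, 8.46 and 8.29 in sham libraries. Matn4 had a log2 fold change of -1.15 (SE 0.12, adjusted p = 0.00147). C1ql1, a secreted C1q-like protein (-0.68, SE 0.13), Lhfpl3 (-1.19, SE 0.26) and Neu4, a sialidase (-0.56, SE 0.12), fell, the call of Lhfpl3 being lost without KA+NBP 1 (adjusted p = 0.05699) and that of Neu4 lost without KA+NBP 3 (adjusted p = 0.0517).

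**Figure D4:**
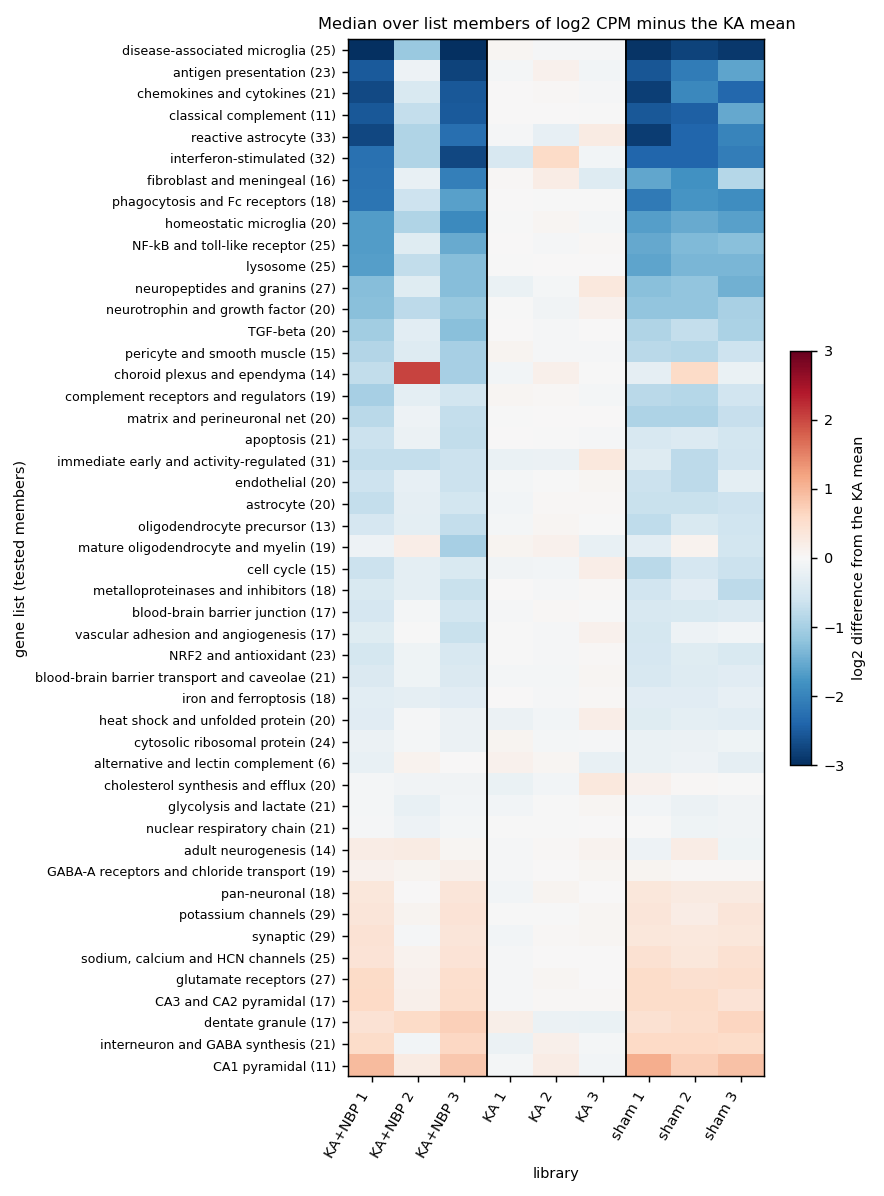
Colour gives, for each list (rows) and library (columns, KA+NBP, KA and sham from left to right), the median over the list's tested genes of log2 CPM minus the KA mean. The KA+NBP 2 column is paler than KA+NBP 1 and 3 in most glial and neuronal rows, while the row of dentate granule genes is alike in all 3 KA+NBP libraries.

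To place KA+NBP 2 between the groups, each gene that changed at least 2-fold in the fit without KA+NBP 2 was put on a scale from 0, the mean of KA+NBP 1 and 3, to 100, the KA mean. The genes were chosen by the same levels, so the positions are a description with no test. Over 1897 genes the median position of KA+NBP 2 was 66.9, with quartiles of 50.5 and 84.9. Of them 1438 lay above 50, 247 above 100 and 35 below 0. The genes lower in KA+NBP 1 and 3 had a median of 68.0 (1631 genes), and the higher ones 59.6 (266 genes). The lists differed in where KA+NBP 2 stood. For 8 dentate granule genes the median position was 14.3 (quartiles -2.51 and 35.7), with 2 of them above 50. The KA libraries were themselves spread there, with medians of 56.9, 113.7 and 129 for KA 1, 2 and 3. For 9 activity-regulated genes the median position of KA+NBP 2 was 37.6. It was 49.7 for 15 lysosomal, 51.0 for 18 homeostatic microglial, 51.2 for 6 CA3 and CA2, 59.5 for 14 neuropeptide and granin, 61.9 for 22 disease-associated microglial, 64.7 for 29 interferon-stimulated and 66.1 for 27 reactive astrocyte genes. It was 74.3 for 11 TGF-beta, 76.8 for 9 classical complement, 79.9 for 7 apoptosis, 87.9 for 14 fibroblast and 90.1 for 19 antigen presentation genes.

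**Figure D5:**
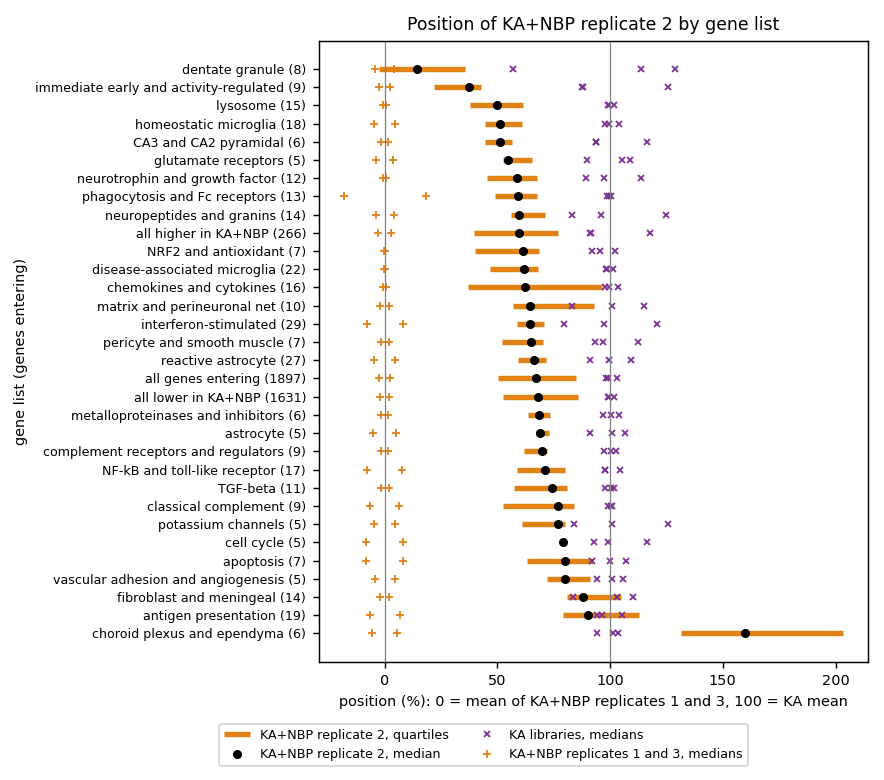
Position of KA+NBP 2 for the genes of each list, from 0 (mean of KA+NBP 1 and 3) to 100 (KA mean), with a black point for the median over the list's genes and a bar for their quartiles; crosses are the medians of the other 5 libraries. Medians run from 14.3 for dentate granule genes to 90.1 for antigen presentation genes and beyond 100 for choroid plexus genes.

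At the low end stood genes in which KA+NBP 2 went beyond the mean of the other KA+NBP libraries. Cpne9, a copine, had 13.4, 25.4 and 11.5 CPM in KA+NBP libraries, against 4.01, 3.01 and 3.21 in KA and 10.9, 13.99 and 11.2 in sham libraries. Cpne9 had a log2 fold change of 2.30 (SE 0.30, adjusted p = 0.00296). Dclk3, a kinase of the doublecortin family, had 21.2, 28.2 and 23.2 CPM in KA+NBP libraries, against 8.44, 6.07 and 4.75 in KA and 26.6, 23.4 and 22.7 in sham libraries. Dclk3 had a log2 fold change of 1.91 (SE 0.20, adjusted p = 0.00147). Kl, the anti-ageing factor klotho of neurons and choroid plexus, had 26.1, 40.97 and 30.1 CPM in KA+NBP libraries, against 9.03, 10.6 and 11.04 in KA and 26.8, 24.6 and 31.7 in sham libraries. Kl had a log2 fold change of 1.67 (SE 0.18, adjusted p = 0.00184). In these genes all 3 KA+NBP libraries were above all KA libraries, with KA+NBP 2 the highest. Itga11, an integrin chain (1.18, SE 0.22), stood there too, and so did Bace2 (-1.31, SE 0.31) and Dsc3 (-1.15, SE 0.35), which fell. The call of Bace2 was lost without KA+NBP 1 or KA 2 (adjusted p = 0.0634 to 0.0752) and that of Dsc3 lost without KA+NBP 1, KA+NBP 3, KA 1, KA 2, KA 3 or sham 2 (adjusted p = 0.0636 to 0.133). At the high end stood H2-Aa, Ttr, Prlr, Arhgap6, Abca4 and Sned1, in which KA+NBP 2 exceeded the KA mean. Prlr, the prolactin receptor, which choroid plexus expresses, had 3.75, 25.7 and 4.896 CPM in KA+NBP libraries, against 5.43, 12.9 and 20.1 in KA and 3.31, 7.58 and 3.45 in sham libraries, and Arhgap6, a regulator of small GTPases, had 7.12, 24.1 and 4.96 CPM in KA+NBP libraries, against 14.2, 13.4 and 11.6 in KA and 4.87, 8.02 and 3.95 in sham libraries. None of these 6 passed with all libraries.

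The markers of tissue next to the hippocampus and of blood moved with single libraries. Choroid plexus genes, those of the epithelium that makes cerebrospinal fluid, summed to 206, 1286 and 137 CPM in the KA+NBP libraries, 256, 267 and 218 CPM in the KA libraries and 193 to 277 CPM in the sham libraries. Ttr, the carrier transthyretin that defines this epithelium, had 1.398, 554 and 0.691 CPM in KA+NBP libraries, against 9.74, 12.6 and 11.9 in KA and 7.05, 17.2 and 9.54 in sham libraries. Ttr had a log2 fold change of 4.02 (SE 1.76, adjusted p = 0.126). Clic6, a chloride channel protein, had 0.191, 17 and 0.314 CPM in KA+NBP libraries, against 0.413, 0.736 and 0.678 in KA and 0.374, 3.23 and 1.25 in sham libraries. Clic6 had a log2 fold change of 3.25 (SE 1.47, adjusted p = 0.138). KA+NBP 2 was the highest library in both, and without it the log2 fold changes were -3.44 and -1.24. Of 14 choroid plexus genes Kl rose and none fell, and the falls numbered 5 without KA+NBP 2. Kl was raised in all 3 KA+NBP libraries, including those with the lowest Ttr. The part of this tissue in the other values of KA+NBP 2 was not tested.

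Leukocyte markers had low levels that differed between libraries. The 16 genes summed to 0.445, 17.6 and 0.565 CPM in the KA+NBP libraries, 7.96, 6.26 and 4.81 CPM in the KA libraries and 1.25, 2.30 and 3.14 CPM in the sham libraries. Of 16 genes 3 were tested, Plac8, Ccr2 and Cd8a, and none changed (adjusted p from 0.5702 to 0.989), where the all-library edgeR fit had 5622 genes at an unadjusted p under 0.05. Together the 3 tested genes summed to 0.191, 7.70 and 0.0628 CPM in the KA+NBP libraries, 3.90, 2.88 and 2.28 CPM in the KA libraries and 0.187 to 0.691 CPM in the sham libraries. Cd8a, the coreceptor of cytotoxic T cells, had 0.127, 4.83 and 0 CPM in KA+NBP libraries, against 2.302, 1.53 and 1.05 in KA and 0.0624, 0.249 and 0 in sham libraries. KA+NBP 2 was the highest and KA+NBP 1 and 3 were among the lowest, and without KA+NBP 2 all 3 genes were lower. Erythrocyte genes, the globins of red cells, summed to 180.2, 10.3 and 5.08 CPM in the KA+NBP libraries, 2.36, 3.68 and 3.45 CPM in the KA libraries and 4.55 to 21.9 CPM in the sham libraries. Of 4 tested, Hbb-bs and Hbb-bt rose, and the count was 0 without KA+NBP 1, KA 1, KA 2, KA 3, sham 1, sham 2 or sham 3, 4 without KA+NBP 2 or KA+NBP 3. The alpha-globin Hba-a1, which shares its sequence with Hba-a2, had 53.1, 2.94 and 0.753 CPM in KA+NBP libraries, against 0.885, 0.797 and 1.05 in KA libraries (log2 fold change 4.37, SE 1.41, adjusted p = 0.0527), and KA+NBP 1 alone stood high.

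Of the 21 genes chosen for the title of the series, which cover complement, the barrier, glia and neuronal factors, 11 fell in KA+NBP libraries and none rose (median -1.57). The count was 7 without KA+NBP 1, KA+NBP 3, KA 1, KA 2 or KA 3, 18 without KA+NBP 2. C1qa, C1qb, C1qc, Itgam, Cd68 and Bdnf passed whichever library was left out, and all of them but Bdnf (adjusted p = 0.0564) without the sham libraries. Aif1, the microglial protein IBA1, had 2.99, 7.89 and 2.32 CPM in KA+NBP libraries, against 13.04, 13.7 and 12.6 in KA libraries (log2 fold change -1.57, SE 0.39, adjusted p = 0.0222). The call of Aif1 was lost without KA+NBP 1, KA+NBP 3, KA 1, KA 2 or KA 3 (adjusted p = 0.0553 to 0.0804). The 10 genes that did not pass with all libraries were C3, C4b, Cldn5, Ocln, Tjp1, Cdh5, Slc2a1, Abcb1a, Mmp9 and Npy. Of these, C3, C4b, Cldn5, Tjp1, Cdh5, Abcb1a and Npy were lower without KA+NBP 2, and Ocln, Slc2a1 and Mmp9 did not pass there.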

How the data were processed

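RNA of mouse hippocampus was extracted with TRIzol, per the labels' protocols, and 1 library was sequenced per mouse. The authors deposited 1 table of estimated counts, FPKM and TPM for 18474 genes, with replicates kept apart. Bowtie2, RSEM 1.3.1, DESeq2 1.4.5 and GRCm39 are named, without their roles, per the submitters' processing notes. The deposited estimated counts, of which 5.68% to 6.61% per library had fractions, were rounded to whole numbers; the authors' FPKM and TPM were not used. Library preparation, strand and read length are not given in the sources used here, and estimated counts split reads between similar genes, so values of near-identical genes are uncertain.

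All 9 libraries entered 1 fit with edgeR 4.0.16 (R 4.3.3): filterByExpr kept 14752 genes, TMM factors ran from 0.9745 to 1.042, and KA+NBP was set against KA with the quasi-likelihood test and Benjamini-Hochberg adjustment over all tested genes at 0.05. The common dispersion was 0.021. Log2 CPM used a prior count of 2, and the fit kept the default prior count of edgeR. CPM use the TMM-scaled library sizes. The SE is the absolute log2 fold change over the square root of F. Depth limits genes under about 1 CPM, and a floor of 3 counts was used where a group had 0. Tables were handled with Python 3.11.15, pandas 2.3.3 and scipy 1.17.1, and the fit was tested on simulated data. Alternatives were DESeq2 1.42.0, limma 3.58.1 voom with sample quality weights, other scaling, filter and block settings, the 6 libraries alone, and each library left out.

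The 50 gene lists hold 987 genes, 978 of them in the table. They, the members and the tests were chosen with earlier results of these data known. Genes named are the 8 largest changed rises and falls with separate groups and at least 1 CPM, with and without KA+NBP 2, the 21 genes chosen for the title, the 4 members of each list with the smallest p, and the 6 lowest and highest positions of KA+NBP 2 among genes of at least 5 CPM; predicted genes were passed over, and exceptions are marked in the text. Some genes that the rule names are not reported here.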

Additional observations from a re-analysis of the deposited data

How the results depend on the processing

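With all libraries 3355 genes changed, 1480 higher and 1875 lower in KA+NBP libraries. DESeq2, RLE scaling, no filter on low counts, robust dispersion and a replicate block gave 4011, 3354, 3102, 3302 and 3189, all within 1.5 times, with the block at 1262 higher and 1927 lower. The KA+NBP and KA libraries alone gave 1065 (465 higher, 600 lower), and 94 of the 222 named genes that changed did not pass there. With sample quality weights, where KA+NBP 2 had a weight of 0.173, limma voom gave 6307 (2844 higher, 3463 lower). With 1 library left out the total ran from 1295 to 6355, the rises from 523 to 2849 and the falls from 772 to 3506. Replicate numbers did not pair the samples: deviations of same-numbered KA+NBP and KA libraries correlated at 0.0447, -0.045 and -0.0201. Of the 276 named genes 222 changed, and 135 did so with each of the 9 libraries left out. Among named genes and these alternatives, log2 fold changes turned sign in 11 genes, none of which changed with all libraries. Their range with 1 library left out was -3.44 to 4.60 for Ttr, -1.24 to 3.82 for Clic6, -3.45 to 0.36 for Ccr2, -4.53 to 0.61 for Cd8a, -3.93 to 0.76 for H2-Aa, -1.07 to 0.026 for Sned1, -1.35 to 0.12 for Abca4, -1.11 to 0.26 for Arhgap6 and -1.56 to 0.32 for Prlr. In each of these 9 the lowest value was the one without KA+NBP 2. For Arc the range was -0.21 to 0.19 and for Egr1 -0.53 to 0.059, the highest in both being the value without KA 3. With quality weights Arc had 0.13, Egr1 0.047, Ttr -2.88, Clic6 -0.90, Cd8a -4.01 and H2-Aa -3.61, and with the block Cd8a had -1.17 and H2-Aa -0.90. The cause of these turns was not tested. Over all alternatives 1180 counts of list members stayed within 1.5 times and 420 did not. Genes with few counts, such as most leukocyte markers, were limited by depth.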
